A study of Mus musculus with 4 samples.

Results

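Wild-type mouse growth plate-like chondrocytes (GPLC cells) were compared after 3 days and after 1 day of culture. The comparison used the 4 day 3 libraries and the 3 day 1 libraries of a time course that also holds days 5 and 10, 7 of 15 libraries in all, chosen by the day in the name of each column and without regard to any measured value. All 24499 genes of the expression table entered, and tests covered the 12109 whose 4 day means averaged at least 1 CPM, the reads of a gene scaled to the size of its library. Both days share the line, the wild-type genotype and the medium, which was DMEM with fetal bovine serum, antibiotics, ascorbic acid and an insulin, transferrin and selenium supplement. No transgene, deletion or drug is named for either day. Total RNA was taken from cells that the protocol calls sorted, with no gate given, and ribosomal RNA was depleted before sequencing. The labels list 1 sample per day and do not say what the library numbers 1 to 4 stand for, so the spread behind a p-value here is that between libraries and may be technical alone.

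The growth plate is the cartilage that lengthens bones. Its resting and round chondrocytes divide, stack into columns, stop dividing and enlarge into hypertrophic cells that make type X collagen and alkaline phosphatase before the matrix mineralizes. The transcription factors SOX9, SOX5 and SOX6 drive the cartilage matrix genes, and RUNX2 drives hypertrophy. Parathyroid hormone-related protein holds cells in the early state, Indian hedgehog is made by cells that are leaving it, FGF signalling through FGFR3 slows growth, and growth hormone with IGF, C-type natriuretic peptide, BMP and Wnt signals promote or shape it. Chondrocytes spread on plastic commonly lose cartilage gene expression and gain stress fibres, which is the known background to following such cells through time in culture.

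Values are the deposited CPM, scaled between libraries by the trimmed mean of M-values (TMM). Day 3 values are given in the order of libraries 1, 2, 3 and 4, and day 1 values in the order of libraries 1, 3 and 4. A log2 difference is day 3 minus day 1 on log2(CPM + 1), given with its standard error, and it understates the change of genes near 0. A gene rose or fell where limma's adjusted p (Benjamini-Hochberg over all genes tested) was under 0.05. The libraries held 12492537 to 18633097 reads in genes. Of the 12109 genes, 1896 rose (15.7%) and 1951 fell (16.1%), and the median log2 difference was -0.02. At least 2-fold higher levels were found for 667 genes (5.51%) and at least 2-fold lower levels for 355 (2.93%). All day 3 libraries lay above all day 1 libraries for 2913 genes (24.1%) and below them for 3191 (26.4%). Counts of calls per list and day ranges called apart or separate are to be read beside these shares of all genes. Leaving out single libraries gave 1298 to 1681 genes that rose and 1267 to 1852 that fell, the lowest count of falls coming without library 4 of day 1. Leaving out all libraries of 1 number removes 1 library from each day that has it, and without number 3 there were 830 that rose and 724 that fell.

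**Figure D1:**
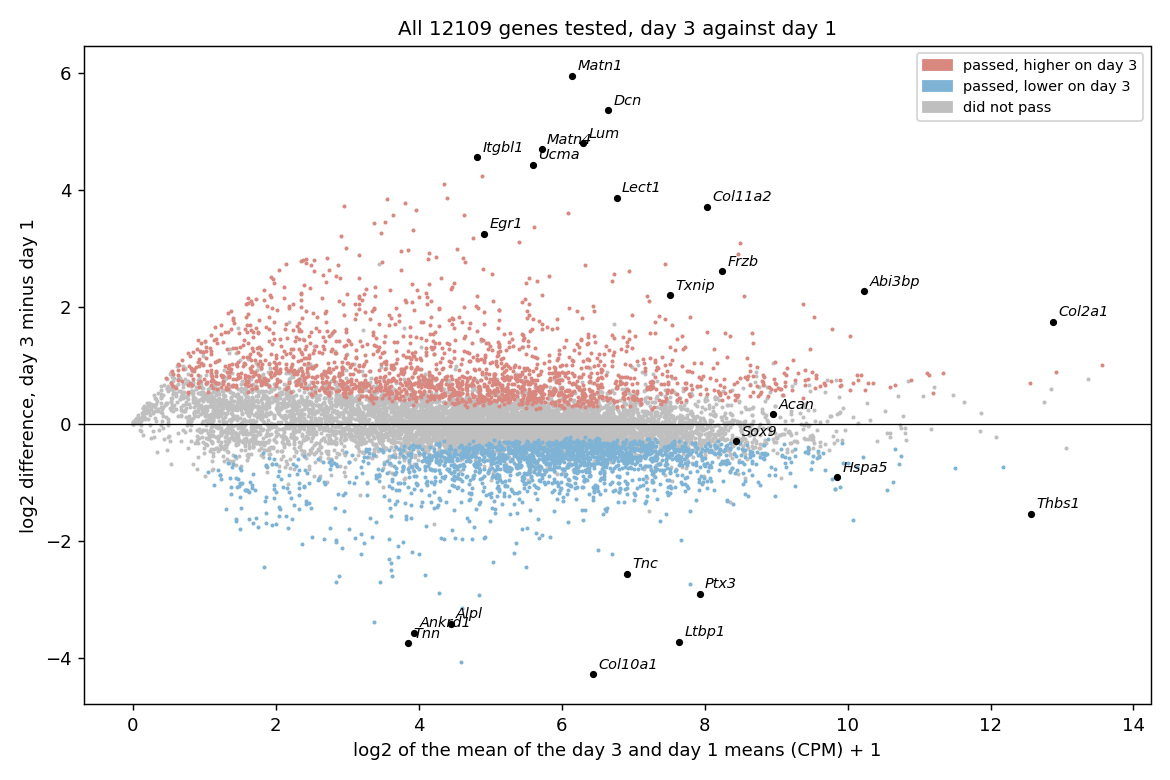
The log2 difference (day 3 minus day 1, vertical axis) of each of the 12109 genes tested is plotted against its mean level on both days (log2 of the mean CPM + 1, horizontal axis), with 1 point per gene. Red points rose, blue points fell and grey points did not pass, and Acan and Sox9 lie near 0 among the named black points.

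The libraries of 1 day were not alike. In a principal component analysis of the 7 libraries, the first component held 71.4% of the variance and separated the days, and the second held 15.6% and set library 2 of day 3 at 35, with the other 6 libraries between -16.4 and 7.8. Libraries 3 and 4 were the closest pair on each day. Library 1 of day 3 had the highest cartilage matrix values of its day, and library 2 of day 3 had the highest values of many interferon and immediate-early genes and the lowest of many amino acid response genes. Results that rest on these libraries are given with and without them, and unless stated otherwise a named call held when each single library of the 2 days was left out. Averaging libraries 3 and 4 of each day is a separate limit and ended 34 of the 225 named calls. Leaving out all libraries numbered 1, 3 or 4 ended 57, 55 and 34 of them. Not all of these losses are marked beside the gene.

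Chondrocyte markers had the highest summed level of the marker groups on both days. All 10 chondrocyte markers found in the table, which are also members of the cartilage lists below, were measured, and their summed level was 11510 to 26890 CPM on day 3 and 4471 to 5045 CPM on day 1, with 8 of 10 higher on day 3 and none lower. Most of the day 1 sum was Col2a1, while the markers Matn1 and Col9a2 were low on that day, as their values below show. Of the osteoblast and osteocyte markers, 8 of 10 were measured and none passed, with a sum of 18.9 to 28.9 CPM on day 3 and 19.5 to 21.8 CPM on day 1. The macrophage and osteoclast markers summed to 15.7 to 25.7 CPM on day 3 and 12.9 to 14.2 CPM on day 1, of which Ctsk and Cd68 made up most, while Adgre1, Tyrobp, C1qa and C1qb had 0 reads in all 7 libraries. Endothelial markers summed to at most 0.315 CPM on day 3 and 0.504 CPM on day 1, with Cdh5 and Tie1 at 0 reads, and epithelial markers to at most 0.787 CPM on day 3 and 1.52 CPM on day 1. Muscle markers reached at most 3.26 CPM on day 3 and 2.25 CPM on day 1, with Myod1, Myog and Ckm at 0 reads. Of the adipocyte markers, 2 were measured, with a sum of 26.1 to 35.6 CPM on day 3 and 38.7 to 47.6 CPM on day 1, and neither passed. Neural markers, mostly Map2, summed to 42.6 to 70.6 CPM on day 3 and 68.6 to 75.6 CPM on day 1, with Sox10 and Snap25 at 0 reads. Of these 3 were measured, of which 1 rose and none fell. Tendon markers summed to 29.2 to 39.2 CPM on day 3 and 32.7 to 36.1 CPM on day 1, with 1 of 2 measured lower (Scx, adjusted p = 0.055 to 0.097 without library 1, 3 or 4 of day 3 or any library of day 1). Perivascular markers, mostly Cspg4, summed to 111.4 to 250.7 CPM on day 3 and 161.2 to 184.6 CPM on day 1, and none of 3 measured passed. The part of other cell types in the results was not tested.

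The collagens of the cartilage fibril were higher on day 3. Of 7 measured genes 5 rose, against 15.7% of all genes, and none fell, with a median log2 difference of 1.74, and leaving out single libraries left 4 or 5. The count was 2 without all libraries numbered 3, and 3 without those numbered 4 or with libraries 3 and 4 averaged. Col2a1 (chr15:97975602-98004695, minus strand) encodes the main fibrillar collagen of cartilage and stood at 20253, 8379.8, 9532 and 9094 CPM on day 3, against 3393, 3471 and 3024 CPM on day 1. Every day 3 library lay above every day 1 library, and library 1 was the highest of day 3. The log2 difference was 1.74 ± 0.61 (adjusted p = 0.039), and this call was lost when single libraries were left out (adjusted p = 0.055 to 0.11 without library 1, 3 or 4 of day 3 or any library of day 1). In such bulk RNA, fewer cells of a type and less RNA per cell cannot be told apart.

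Col11a2 (chr17:34039437-34066685, plus strand), a chain of the type XI collagen that sets fibril diameter, had 1123, 342, 255 and 252 CPM on day 3, against 29.97, 32.1 and 26.3 CPM on day 1. Col11a1, its partner chain, had 2205, 612, 975 and 932 CPM on day 3, against 372, 276 and 251 CPM on day 1. The days were apart for both, with a log2 difference of 3.71 ± 0.52 (adjusted p = 0.00013) for Col11a2 and of 1.83 ± 0.48 (adjusted p = 0.01) for Col11a1. The Col11a1 call was lost with libraries 3 and 4 averaged (adjusted p = 0.069). The type IX collagens sit on the fibril surface. Col9a1 had 2483, 1602, 1109 and 1068 CPM on day 3, against 601, 473 and 489 CPM on day 1 (log2 difference 1.51 ± 0.40, adjusted p = 0.011). Col9a2 had 55, 24.2, 15.5 and 12.5 CPM on day 3, against 1.64, 1.51 and 1.05 CPM on day 1 (log2 difference 3.31 ± 0.49, adjusted p = 0.0002). Library 1 of day 3 was the highest in all 5 of these genes, and library 2 was the lowest of day 3 for Col2a1 and Col11a1. Col9a3, the third type IX chain, had 25.7, 16.9, 11.2 and 14.2 CPM on day 3, against 15.7, 15.4 and 9.9 CPM on day 1, and its day ranges overlapped (adjusted p = 0.64). Col27a1, a fibrillar collagen of cartilage, had 677, 340.1, 558 and 516 CPM on day 3, against 249, 380.1 and 313 CPM on day 1 with overlapping ranges (adjusted p = 0.16). It passed with the 7 libraries fitted alone (adjusted p = 0.035), with the block (adjusted p = 0.013) and without all libraries numbered 2 (adjusted p = 0.025), the block being the library number.

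**Figure D2:**
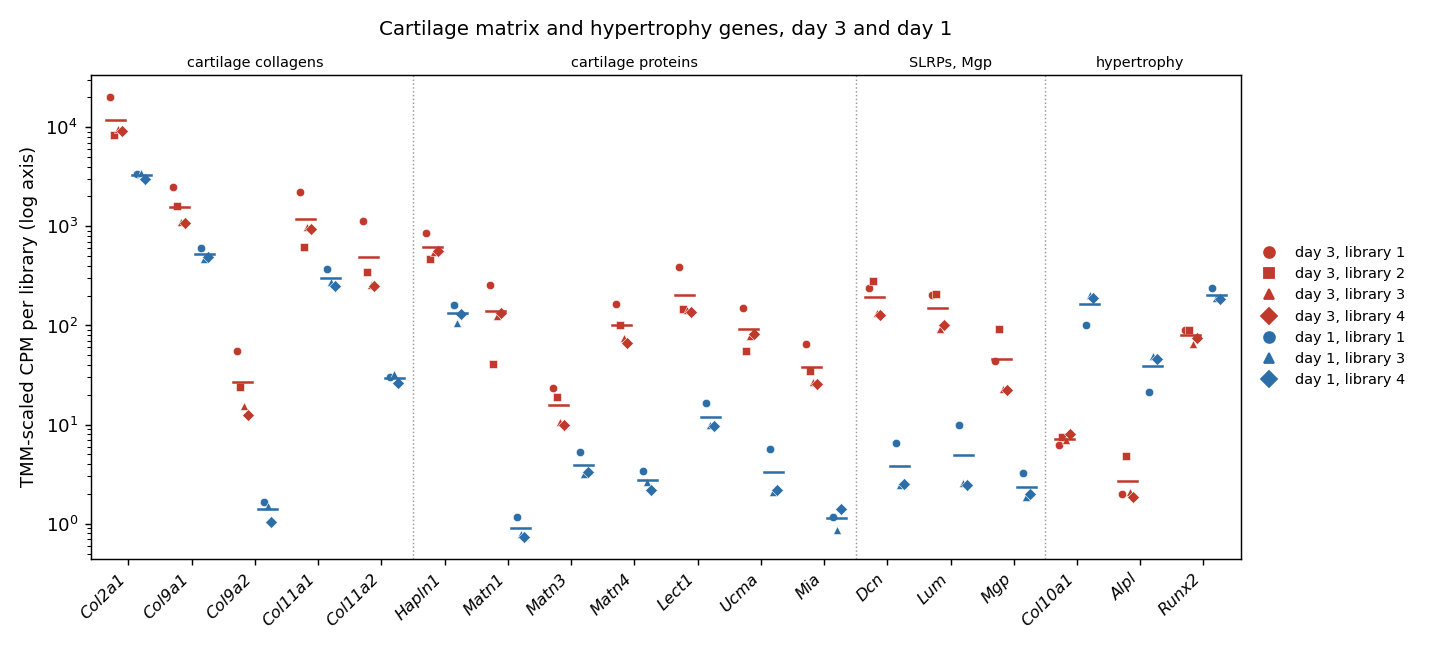
CPM in each library on a log axis for 18 matrix and hypertrophy genes, with day 3 in red left of day 1 in blue; each symbol is 1 library and each bar the mean of its day. The matrix genes lie higher on day 3 in all libraries, and Col10a1, Alpl and Runx2 lie lower.

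The proteins that tie the cartilage matrix together moved the same way. Of 15 measured genes of this group 10 rose and none fell, with a median log2 difference of 1.71 and 9 to 11 risers when single libraries were left out. Matn1 (chr4:130944385-130955475, plus strand), matrilin 1, a linker of collagen and proteoglycan and a marker of cartilage, had the largest rise of all, with 256, 40.9, 126 and 133 CPM on day 3, against 1.16, 0.791 and 0.742 CPM on day 1. Library 2 of day 3 was the lowest of its day and still above every day 1 library (log2 difference 5.94 ± 0.79, adjusted p = 8.5e-05). Matn4 (chr2:164389393-164405160, minus strand) had 163, 101, 73.9 and 65.8 CPM on day 3, against 3.41, 2.66 and 2.16 CPM on day 1 (log2 difference 4.69 ± 0.35, adjusted p = 8.5e-07). Matn3, whose variants are known in skeletal dysplasia, had 23.3, 19.1, 10.7 and 9.97 CPM on day 3, against 5.3, 3.17 and 3.34 CPM on day 1 (log2 difference 1.71 ± 0.28, adjusted p = 0.00051). The widely expressed Matn2 rose by less (log2 difference 0.99 ± 0.17, adjusted p = 0.0007). All 4 matrilins had separate day ranges.

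Lect1, which encodes chondromodulin, a cartilage inhibitor of vessel growth, had 393, 145, 142 and 138 CPM on day 3, against 16.4, 9.86 and 9.65 CPM on day 1 (log2 difference 3.87 ± 0.44, adjusted p = 2.9e-05). Ucma (chr2:4976122-4985748, plus strand), a small secreted protein known from resting chondrocytes, had 152, 55, 77.4 and 82 CPM on day 3, against 5.67, 2.09 and 2.16 CPM on day 1 (log2 difference 4.42 ± 0.49, adjusted p = 2e-05). Mia, cartilage-derived retinoic acid-sensitive protein, had 64.4, 35, 26.8 and 25.9 CPM on day 3, against 1.16, 0.863 and 1.42 CPM on day 1 (log2 difference 4.09 ± 0.36, adjusted p = 2.6e-06). Each was separate between days, with library 1 of day 3 the highest. Hapln1, the link protein that fixes aggrecan to hyaluronan, had 864, 469.5, 554 and 566 CPM on day 3, against 159, 106 and 132 CPM on day 1 (log2 difference 2.18 ± 0.46, adjusted p = 0.0025). Its ranges were apart.

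Aggrecan did not follow its link protein. Acan, the main cartilage proteoglycan, had 1051, 261, 471 and 452 CPM on day 3, against 426, 479 and 408 CPM on day 1, and only library 1 of day 3 stood above every day 1 library (log2 difference 0.17 ± 0.55, adjusted p = 0.85). Vcan, the proteoglycan of precartilage, had 70.9, 45.2, 55.1 and 50.8 CPM on day 3, against 54.6, 31.6 and 29.4 CPM on day 1 (adjusted p = 0.17).

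Among the small leucine-rich proteoglycans (SLRPs), which bind collagen fibrils, 8 of 12 measured genes rose and none fell (median log2 difference 1.12, 7 to 9 when single libraries were left out). Dcn (chr10:97479609-97518143, plus strand), decorin, had 241, 281, 132 and 127 CPM on day 3, against 6.58, 2.45 and 2.54 CPM on day 1 (log2 difference 5.35 ± 0.33, adjusted p = 3.1e-07). Lum (chr10:97565128-97572703, plus strand), lumican, had 201, 209, 93.2 and 101 CPM on day 3, against 9.81, 2.59 and 2.47 CPM on day 1 (log2 difference 4.79 ± 0.43, adjusted p = 2.9e-06). These neighbours on chromosome 10 were apart between days, and for both genes libraries 1 and 2 stood above libraries 3 and 4 on day 3 and library 1 above the other libraries on day 1.

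Smaller rises came from SLRPs that were already abundant. Fmod, fibromodulin, had 954, 659.9, 727 and 681 CPM on day 3, against 366, 380.5 and 404 CPM on day 1 (log2 difference 0.96 ± 0.16, adjusted p = 0.00058). Bgn, biglycan, had 2978, 2733, 2907 and 2807 CPM on day 3, against 1498, 1620.2 and 1582 CPM on day 1 (log2 difference 0.87 ± 0.15, adjusted p = 0.0007). Ogn, osteoglycin or mimecan, had 1175, 1142, 802 and 759 CPM on day 3, against 577, 500.4 and 531 CPM on day 1 (log2 difference 0.83 ± 0.25, adjusted p = 0.02), and its call was lost without some libraries (adjusted p = 0.051 to 0.073 without library 1 or 2 of day 3 or library 3 or 4 of day 1). All 3 were apart between days, and Bgn spread little within either. Aspn, asporin, an inhibitor of TGF-beta, had overlapping ranges at 539, 814, 313 and 315 CPM on day 3, against 405, 361 and 429 CPM on day 1 (adjusted p = 0.75). Epyc, epiphycan of epiphyseal cartilage, had 5.91, 5.19, 1.49 and 0.855 CPM on day 3, against 0.366, 0.072 and 0.186 CPM on day 1 (adjusted p = 0.064). It passed with a pseudocount of 0.25 (adjusted p = 0.02), with the 7 libraries fitted alone (adjusted p = 0.017), with the block (adjusted p = 0.011), with edgeR (adjusted p = 0.016), with DESeq2 (adjusted p = 0.00018) and without library 4 of day 3 (adjusted p = 0.04).

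Collagens of fibrous tissue and basement membrane did not share in the rise. Of 19 measured, 3 rose and 1 fell, with a median log2 difference of 0.07, and 1 riser was left without library 3 or 4 of day 1. Col14a1, a fibril-associated collagen, had 55.6, 37.6, 26.4 and 25 CPM on day 3, against 18, 9.21 and 9.15 CPM on day 1 (log2 difference 1.5 ± 0.35, adjusted p = 0.0048). Col1a1, a chain of type I collagen, had 9414, 9857, 5288 and 4988 CPM on day 3, against 11509, 9426 and 7652 CPM on day 1, with overlapping ranges (adjusted p = 0.59). Col3a1 rose by less (log2 difference 0.88 ± 0.27, adjusted p = 0.024), with a call lost on leaving out libraries (adjusted p = 0.058 to 0.089 without library 1 or 2 of day 3 or any library of day 1). Col5a2 fell (log2 difference -0.76 ± 0.25, adjusted p = 0.033) under the same limit (adjusted p = 0.072 to 0.11 without library 3 or 4 of day 3 or any library of day 1). Col8a1, a short-chain collagen of the vessel wall and cornea, was the third riser (log2 difference 0.96 ± 0.27, adjusted p = 0.015; adjusted p = 0.08 to 0.088 without library 3 or 4 of day 1). Col1a2 had 199.6, 322, 126 and 130.2 CPM on day 3, against 422, 511 and 433 CPM on day 1, all below day 1 (adjusted p = 0.3). It passed with the 7 libraries fitted alone (adjusted p = 0.0074), with the block (adjusted p = 0.037) and without all libraries numbered 2 (adjusted p = 0.038).

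The adhesive and elastic matrix proteins split. Of 26 measured, 11 rose and 4 fell, with a median log2 difference of 0.65, and single libraries left out gave 8 to 12 risers and 4 fallers. Without all libraries numbered 3 there were 5 risers, and without those numbered 4 or with libraries 3 and 4 averaged there were 7. Tnn, tenascin N of bone-forming regions, had 0.939, 2.6, 0.446 and 0.214 CPM on day 3, against 13.2, 31.7 and 32.7 CPM on day 1 (log2 difference -3.74 ± 0.60, adjusted p = 0.00038). Tnc, tenascin C, had 43.6, 19.7, 39.6 and 36.8 CPM on day 3, against 229.9, 199.7 and 179 CPM on day 1 (log2 difference -2.55 ± 0.42, adjusted p = 0.00047). Fbln2, fibulin 2, had 34.9, 32.7, 31.8 and 30.1 CPM on day 3, against 151, 159.9 and 131 CPM on day 1 (log2 difference -2.15 ± 0.33, adjusted p = 0.00027). Thbs1, thrombospondin 1, an abundant activator of latent TGF-beta, had 5192, 2385, 2631 and 2661 CPM on day 3, against 9493, 8918 and 8186 CPM on day 1 (log2 difference -1.54 ± 0.33, adjusted p = 0.0029). In all 4 every day 3 library lay below every day 1 library.

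Mgp (chr6:136872435-136875823, minus strand), matrix Gla protein, an inhibitor of mineralization made by chondrocytes, was the largest riser of that group with 44.1, 92.9, 23 and 22.6 CPM on day 3, against 3.23, 1.87 and 1.98 CPM on day 1 (log2 difference 3.57 ± 0.42, adjusted p = 3.6e-05). Sparcl1, a SPARC relative, rose too (log2 difference 2.09 ± 0.42, adjusted p = 0.0018). Fbln7, fibulin 7, had 79.7, 68.9, 66 and 62.3 CPM on day 3, against 11.8, 17.9 and 17.4 CPM on day 1 (log2 difference 2.09 ± 0.33, adjusted p = 0.00033). The day ranges of all 3 were apart, and library 2 of day 3 was the highest for Mgp and Sparcl1. Smoc1, a calcium-binding matrix protein of limb development, was tighter, at 148, 129.8, 142 and 139 CPM on day 3, against 54.8, 56.1 and 54.6 CPM on day 1 (log2 difference 1.33 ± 0.12, adjusted p = 2.9e-06). Its libraries lay close together on both days. Abi3bp, a matrix protein that binds the adaptor ABI3, was among the 10 largest gains of mean CPM, with 2699, 1487, 1906 and 1864 CPM on day 3, against 388, 401 and 421 CPM on day 1 (log2 difference 2.27 ± 0.24, adjusted p = 1.2e-05).

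Genes that modify and cross-link collagen rose in part. Of 27 measured, 10 rose and 1 fell (median log2 difference 0.38). Bmp1, the procollagen C-proteinase, had 85.2, 59.1, 82.2 and 76.6 CPM on day 3, against 30.5, 39.8 and 36.1 CPM on day 1 (log2 difference 1.07 ± 0.22, adjusted p = 0.0025). Pcolce, which enhances that enzyme, had 894, 941, 785 and 724 CPM on day 3, against 508, 533 and 524 CPM on day 1 (log2 difference 0.67 ± 0.16, adjusted p = 0.0049). Plod2, the lysyl hydroxylase of collagen telopeptides, had 298, 176, 184 and 182 CPM on day 3, against 102, 108 and 112 CPM on day 1 (log2 difference 0.92 ± 0.21, adjusted p = 0.0044). Plod1, which hydroxylates helical lysines, rose by less (log2 difference 0.64 ± 0.16, adjusted p = 0.0077). The day ranges of all 4 were apart. The single faller was the prolyl 3-hydroxylase P3h2, with 5.47, 5.12, 4.02 and 4.49 CPM on day 3, against 9.14, 14.3 and 14.4 CPM on day 1 (adjusted p = 0.057 to 0.12 without any library of day 3 or library 3 or 4 of day 1). No gene of this list passed when all libraries numbered 1 were left out together, and 5 rose without those numbered 3.

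Genes of glycosaminoglycan synthesis and turnover stayed near the background, with 7 of 36 measured higher and 4 lower and a median log2 difference of -0.02. Chst11, the chondroitin 4-O-sulfotransferase that cartilage needs, rose, with 114, 47.5, 70.2 and 68.4 CPM on day 3, against 21.4, 18.6 and 19.9 CPM on day 1 (log2 difference 1.79 ± 0.35, adjusted p = 0.0017). Ust, which sulfates uronic acid (log2 difference 0.92 ± 0.14, adjusted p = 0.00023), and Sulf1, an extracellular heparan sulfatase (log2 difference 0.90 ± 0.17, adjusted p = 0.0012), rose by less. Hyal1, the lysosomal hyaluronidase, had 16, 7.95, 10.7 and 9.47 CPM on day 3, against 2.13, 1.37 and 1.73 CPM on day 1 (log2 difference 2.1 ± 0.25, adjusted p = 3.8e-05). Tmem2, a cell-surface hyaluronidase, fell (log2 difference -1.1 ± 0.10, adjusted p = 2.6e-06). The ranges of these 5 were apart. Ugdh, which makes the UDP-glucuronic acid needed for every such chain, fell (log2 difference -0.72 ± 0.14, adjusted p = 0.0013), as did Hs6st2, a heparan 6-O-sulfotransferase (log2 difference -1.16 ± 0.19, adjusted p = 0.00041).

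Of 26 measured matrix proteases 10 rose and 2 fell, with a median log2 difference of 0.62 (leaving out library 2 of day 3 gave 4 fallers, as did the block, and 4 and 6 rose without all libraries numbered 1 and 3). Htra1, a serine protease of cartilage and bone, had 45.8, 27.9, 44.8 and 50.6 CPM on day 3, against 4.45, 4.96 and 5.5 CPM on day 1 (log2 difference 2.83 ± 0.22, adjusted p = 1e-06). Mmp2, gelatinase A, had 1062, 1150.5, 935 and 891 CPM on day 3, against 408, 436 and 395 CPM on day 1 (log2 difference 1.28 ± 0.14, adjusted p = 2.5e-05). Plat, tissue plasminogen activator, had 11.5, 11.6, 8.4 and 8.97 CPM on day 3, against 3.96, 3.24 and 2.97 CPM on day 1 (log2 difference 1.33 ± 0.23, adjusted p = 0.0007). All 3 were apart between days. The aggrecanases went opposite ways. Adamts5, the main aggrecanase of mouse cartilage, had 13.1, 7.55, 4.02 and 5.7 CPM on day 3, against 34.8, 27.4 and 27.6 CPM on day 1 (log2 difference -1.95 ± 0.39, adjusted p = 0.0021). Adamts4 had 14.9, 13.4, 6.02 and 6.13 CPM on day 3, against 5.0, 3.24 and 2.78 CPM on day 1 (log2 difference 1.18 ± 0.34, adjusted p = 0.016), a call lost without some libraries (adjusted p = 0.051 to 0.071 without library 1 of day 3 or library 3 or 4 of day 1).

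Of 13 measured protease inhibitors 6 rose and 2 fell (median log2 difference 0.66), leaving out library 1, 3 or 4 of day 1 left 3 risers, and the block gave 4 fallers. Without all libraries numbered 1 or without those numbered 3 there was 1 riser. With libraries 3 and 4 averaged there were 2, and DESeq2 gave 8. Reck, a membrane-bound inhibitor of metalloproteases, had 58.7, 35.5, 36.8 and 35.9 CPM on day 3, against 14.3, 12 and 12.2 CPM on day 1 (log2 difference 1.59 ± 0.18, adjusted p = 2.1e-05). Plaur, the urokinase receptor counted with this list, fell, at 3.65, 7.0, 4.02 and 3.35 CPM on day 3, against 19.4, 26.9 and 24.1 CPM on day 1 (log2 difference -2.19 ± 0.42, adjusted p = 0.0013). Both genes were apart between days. Timp1, an inhibitor of metalloproteases, had 23.8, 33.3, 18.8 and 18 CPM on day 3, against 35.5, 40.5 and 39.5 CPM on day 1 (adjusted p = 0.13). It passed with the 7 libraries fitted alone (adjusted p = 0.016), with the block (adjusted p = 0.0012) and without all libraries numbered 2 (adjusted p = 0.0006). Slpi, a secreted inhibitor of leukocyte elastase, rose over a wide spread, with overlapping ranges of 34, 87.9, 16.9 and 12.2 CPM on day 3, against 13.1, 5.4 and 5.2 CPM on day 1 (log2 difference 1.83 ± 0.54, adjusted p = 0.019; adjusted p = 0.075 to 0.079 without library 3 or 4 of day 1).

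Hypertrophy and mineralization genes did not move as a block. Of 22 measured, 3 rose and 5 fell, with a median log2 difference of 0.08. Without all libraries numbered 1 there were 1 riser and 2 fallers, and without those numbered 3 there were 2 and 3. Col10a1 (chr10:34389981-34397085, plus strand), type X collagen of hypertrophic chondrocytes, had 6.24, 7.55, 6.92 and 7.98 CPM on day 3, against 100.2, 203 and 189 CPM on day 1, the largest fall of the genes named by size of change (log2 difference -4.28 ± 0.58, adjusted p = 9.8e-05). The 4 day 3 libraries lay within a narrow band, and library 1 was the lowest of day 1. Alpl (chr4:137741733-137796384, minus strand), the tissue-nonspecific alkaline phosphatase that releases phosphate for mineral, had 1.99, 4.88, 2.08 and 1.85 CPM on day 3, against 21.5, 49.1 and 46 CPM on day 1 (log2 difference -3.41 ± 0.88, adjusted p = 0.0089). The Alpl call was lost without all libraries numbered 1 (adjusted p = 0.059) or 3 (adjusted p = 0.075). It was also lost with libraries 3 and 4 averaged (adjusted p = 0.055). Runx2 (chr17:44495987-44814797, minus strand), the factor that drives hypertrophy and bone formation, had 90.4, 90.1, 65.3 and 74.2 CPM on day 3, against 241, 189.7 and 183 CPM on day 1 (log2 difference -1.35 ± 0.27, adjusted p = 0.002).

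Dlx3 and Dlx5, distal-less factors of bone-forming cells, fell with them. Dlx3 had 1.33, 3.07, 3.57 and 2.92 CPM on day 3, against 14.4, 20.6 and 24.1 CPM on day 1 (log2 difference -2.49 ± 0.60, adjusted p = 0.0059). Dlx5 had 15.6, 22.6, 15.2 and 12.5 CPM on day 3, against 33.8, 32 and 35.8 CPM on day 1 (log2 difference -1.02 ± 0.26, adjusted p = 0.0085). Without all libraries numbered 1 neither passed (adjusted p = 0.067 for Dlx3, adjusted p = 0.059 for Dlx5). Every day 3 library lay below every day 1 library for all 5 fallers of this group. Of the risers, Enpp1, which makes the mineral inhibitor pyrophosphate, had 147, 145, 82.2 and 88.1 CPM on day 3, against 46.9, 22.4 and 22 CPM on day 1 (log2 difference 1.93 ± 0.25, adjusted p = 7e-05). Phospho1, a phosphatase of matrix vesicles, rose by a similar log2 difference (1.8 ± 0.46, adjusted p = 0.0086). The third riser, the phosphate transporter Slc20a2, named after its values were seen, rose the least (log2 difference 0.38 ± 0.14, adjusted p = 0.049), and its call was lost without each single library in turn (adjusted p = 0.061 to 0.16 without any library of day 3 or any library of day 1). Mef2c, which activates Col10a1 in the growth plate, did not pass (adjusted p = 0.19), but did with the 7 libraries fitted alone (adjusted p = 0.008) and without all libraries numbered 2 (adjusted p = 0.012). Spp1, osteopontin, did not pass (adjusted p = 0.29), and Ibsp and Bglap, of bone matrix, had 14 and 4 reads over the 7 libraries.

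Of the chondrogenic transcription factors, 5 of 19 measured rose and 1 fell (median log2 difference 0.26). Sox9, the factor that cartilage cannot form without, had 389, 226, 309 and 329.6 CPM on day 3, against 411, 348 and 377 CPM on day 1, with overlapping ranges (log2 difference -0.29 ± 0.38, adjusted p = 0.59). Its partners differed. Sox5 rose, with 111, 53.7, 79.3 and 89.3 CPM on day 3, against 48.3, 34.8 and 38.5 CPM on day 1 (log2 difference 0.99 ± 0.24, adjusted p = 0.0064). Sox6 fell, with 218, 132, 154 and 155 CPM on day 3, against 301, 244 and 247 CPM on day 1 (log2 difference -0.70 ± 0.24, adjusted p = 0.041; adjusted p = 0.076 to 0.14 without library 2, 3 or 4 of day 3 or any library of day 1). Zfp521, a zinc finger protein that restrains RUNX2 in the growth plate, had 134, 126, 104 and 102 CPM on day 3, against 49, 42.2 and 41.4 CPM on day 1 (log2 difference 1.37 ± 0.12, adjusted p = 3.1e-06). Nfia, of the nuclear factor I family, had 138, 95.6, 99 and 97.6 CPM on day 3, against 56.8, 35.1 and 37.5 CPM on day 1 (log2 difference 1.31 ± 0.21, adjusted p = 0.00045). Foxc1, needed for skeletal development, rose by less (log2 difference 0.78 ± 0.13, adjusted p = 0.00059), as did Trps1, mutated in tricho-rhino-phalangeal syndrome (log2 difference 0.81 ± 0.21, adjusted p = 0.0096). The 5 risers were apart between days. With libraries 3 and 4 averaged, the calls of Sox5 (adjusted p = 0.071) and Trps1 (adjusted p = 0.086) were lost.

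The endoplasmic reticulum chaperones and the transport machinery that secrete such proteins went the other way. Of 27 measured genes 16 fell and none rose, with a median log2 difference of -0.53, against 16.1% of all genes that fell. Leaving out single libraries gave 11 to 15 fallers, leaving out all libraries numbered 1 gave 9, and all numbered 3 gave 7. Hspa5 (chr2:34771970-34777547, plus strand), the chaperone BiP, had 655, 621, 665 and 629.8 CPM on day 3, against 1200.5, 1226 and 1185 CPM on day 1 (log2 difference -0.90 ± 0.21, adjusted p = 0.0047). Hyou1, its exchange factor, had 170.0, 158, 186 and 184 CPM on day 3, against 376, 398 and 375 CPM on day 1 (log2 difference -1.13 ± 0.20, adjusted p = 0.00087). Manf, a secreted stress-induced factor, had 84.1, 107, 116 and 113 CPM on day 3, against 200.2, 199 and 206 CPM on day 1 (log2 difference -0.95 ± 0.21, adjusted p = 0.0032). The libraries of a day lay close together and the days did not overlap.

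Hsp90b1, the chaperone GRP94, had 1249.7, 1198, 1373 and 1363 CPM on day 3, against 1950.3, 2150.4 and 2139 CPM on day 1 (log2 difference -0.68 ± 0.15, adjusted p = 0.0032). Creld2, a disulfide isomerase known from chondrocytes under stress, had 24.4, 31.6, 30.3 and 28.2 CPM on day 3, against 55, 52.2 and 49.5 CPM on day 1 (log2 difference -0.85 ± 0.20, adjusted p = 0.0058). Sec23b, of the COPII coat that carries cargo out of the reticulum, had 49.6, 52.1, 52.9 and 55.7 CPM on day 3, against 103, 104 and 105 CPM on day 1, with little spread on either day (log2 difference -0.97 ± 0.10, adjusted p = 6.9e-06). Creb3l1, a factor that drives secretory genes in bone, was not called (adjusted p = 0.59).

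A known control element of these chaperone genes is the ER stress response element (ERSE), bound by ATF6, XBP1 and NF-Y, spelled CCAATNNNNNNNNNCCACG, which contains a CCAAT box. It was searched on both strands in the 250 bases upstream of the RefSeq start (GRCm38.p6), for 9665 of 12109 genes that matched a promoter. It was found in 16 promoters of all genes (0.166%), in 0 of 1500 genes that rose and in 8 of 1578 that fell (0.507%). In the chaperone and secretory list 8 of 23 matched genes held it (34.8%), of which 7 fell and Syvn1 did not pass, but did with the 7 libraries fitted alone (adjusted p = 0.012) and without all libraries numbered 4 (adjusted p = 0.033). A match is a description of letters, not of a bound site. The promoters of the 7 that fell are shown because they carry this shared element, in capitals. They are read on the gene's own strand and end before the first annotated exon, except for Hspa5, whose element lies within an exon annotated by GENCODE and is shown as a site of 29 bases, and a match on the opposite strand starts with CGTGG and ends with ATTGG. Calr, Canx, Dnajc3 and Pdia6 were taken up for this element after their values were seen.
Hspa5, chr2:34772020-34772048, plus strand: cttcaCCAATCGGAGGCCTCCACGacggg
Hsp90b1, chr10:86705510-86705666, minus strand: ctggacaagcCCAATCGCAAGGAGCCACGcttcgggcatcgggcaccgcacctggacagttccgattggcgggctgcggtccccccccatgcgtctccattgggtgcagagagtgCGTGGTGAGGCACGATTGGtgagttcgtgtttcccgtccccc
Calr, chr8:84846935-84847103, minus strand: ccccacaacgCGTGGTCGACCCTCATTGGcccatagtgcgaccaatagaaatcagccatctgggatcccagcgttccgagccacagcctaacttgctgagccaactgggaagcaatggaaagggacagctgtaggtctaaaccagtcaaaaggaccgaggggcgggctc
Canx, chr11:50325674-50325828, minus strand: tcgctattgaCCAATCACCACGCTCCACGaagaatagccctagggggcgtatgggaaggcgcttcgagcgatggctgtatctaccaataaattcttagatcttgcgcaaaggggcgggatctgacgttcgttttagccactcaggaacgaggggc
Creld2, chr15:88819510-88819645, plus strand: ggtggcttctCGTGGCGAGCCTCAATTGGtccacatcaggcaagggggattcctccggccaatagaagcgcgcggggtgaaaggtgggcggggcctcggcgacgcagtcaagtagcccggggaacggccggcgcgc
Dnajc3, chr14:118937817-118937931, plus strand: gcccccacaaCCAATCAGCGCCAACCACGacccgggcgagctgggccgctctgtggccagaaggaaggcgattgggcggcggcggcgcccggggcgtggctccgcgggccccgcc
Pdia6, chr12:17266481-17266544, plus strand: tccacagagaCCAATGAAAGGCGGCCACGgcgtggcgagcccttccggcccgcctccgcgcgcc

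Hsp90b1 held the element 2 times, 1 on each strand, and the other genes 1 time in the stretch shown. Calr and Canx, the lectin chaperones of glycoprotein folding, fell by less than Hspa5, with log2 differences of -0.57 ± 0.19 and -0.32 ± 0.11. Their calls were lost when single libraries were left out (Calr adjusted p = 0.061 to 0.094 without library 1, 3 or 4 of day 3 or any library of day 1; Canx adjusted p = 0.05 to 0.11 without any library of day 3 or any library of day 1). Pdia6, a disulfide isomerase, was at the threshold, with a log2 difference of -0.43 ± 0.16 and a call that was lost likewise (adjusted p = 0.075 to 0.14 without library 1, 3 or 4 of day 3 or any library of day 1). Dnajc3, a cochaperone of BiP, fell with 78.9, 71, 77.3 and 79.1 CPM on day 3, against 118, 106 and 109 CPM on day 1 (log2 difference -0.53 ± 0.09, adjusted p = 0.00063).

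Contractile actin genes fell. Of 31 measured 20 fell and none rose, with a median log2 difference of -0.74, and leaving out single libraries gave 15 to 19. Leaving out all libraries numbered 1, 3 or 4 gave 10 to 12, and averaging libraries 3 and 4 gave 13. Tagln (chr9:45929619-45936058, minus strand), transgelin of smooth muscle, had 4.14, 9.21, 3.35 and 3.28 CPM on day 3, against 25.4, 23.9 and 25.9 CPM on day 1 (log2 difference -2.22 ± 0.41, adjusted p = 0.0011). Csrp1, a LIM protein of stress fibres, had 116, 161, 97.6 and 99.3 CPM on day 3, against 222, 255 and 268 CPM on day 1 (log2 difference -1.09 ± 0.18, adjusted p = 0.00058). Actn1, alpha-actinin of focal adhesions, had 283, 309.9, 279 and 279.6 CPM on day 3, against 571, 580.2 and 570.0 CPM on day 1 (log2 difference -0.99 ± 0.16, adjusted p = 0.00036). Every day 3 library was below every day 1 library, and library 2 was the highest of day 3 in all 3.

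Abundant members showed the same direction. Myh9, the heavy chain of nonmuscle myosin, had 1307, 905, 1012 and 1046 CPM on day 3, against 2110.1, 2267 and 1978 CPM on day 1 (log2 difference -1.0 ± 0.26, adjusted p = 0.0089). Actb, cytoplasmic beta-actin, had 3216, 4502, 3034 and 3120.1 CPM on day 3, against 5576, 5583 and 6012 CPM on day 1 (log2 difference -0.74 ± 0.21, adjusted p = 0.014; adjusted p = 0.059 without library 4 of day 1). Acta2, smooth muscle alpha-actin, had 510.4, 710.0, 526 and 525 CPM on day 3, against 985, 1346 and 1368 CPM on day 1 (log2 difference -1.12 ± 0.30, adjusted p = 0.012; adjusted p = 0.051 without library 4 of day 1). In each the days were apart, and library 2 was the highest of day 3 for both actins and the lowest for Myh9.

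Serum response factor (SRF), with its actin-sensing cofactors, binds the CArG box in many of these genes. A CArG box lay in 139 of 9665 matched promoters (1.44%), in 1.47% of genes that rose, in 1.65% of genes that fell and in 8 of 27 matched contractile genes (29.6%). Promoters of this list are shown for Vcl (vinculin), Srf itself and Actg1 (cytoplasmic gamma-actin), with the CArG box in capitals, and these 3 were taken up for the motif after their values were seen.
Vcl, chr14:20929161-20929397, plus strand: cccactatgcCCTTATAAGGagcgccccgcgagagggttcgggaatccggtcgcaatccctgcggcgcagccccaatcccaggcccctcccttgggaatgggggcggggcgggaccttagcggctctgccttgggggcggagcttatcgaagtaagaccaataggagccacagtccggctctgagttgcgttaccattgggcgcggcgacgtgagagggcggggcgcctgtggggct
Srf, chr17:46556176-46556254, minus strand: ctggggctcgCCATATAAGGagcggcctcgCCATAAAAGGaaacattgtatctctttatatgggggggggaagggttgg
Actg1, chr11:120348543-120348595, minus strand: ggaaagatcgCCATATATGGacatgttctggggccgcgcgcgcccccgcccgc

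All 3 of these fell. Vcl had 207, 215, 159.5 and 156 CPM on day 3, against 382, 356 and 343 CPM on day 1 (log2 difference -0.98 ± 0.15, adjusted p = 0.00035). Srf had 59.5, 78.5, 61.3 and 65.4 CPM on day 3, against 109, 104 and 108 CPM on day 1 (log2 difference -0.69 ± 0.19, adjusted p = 0.011). Actg1 had 314, 402, 285 and 279 CPM on day 3, against 513, 473 and 494 CPM on day 1 (log2 difference -0.64 ± 0.14, adjusted p = 0.0037). Their day ranges did not overlap.

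Targets of the mechanical coactivator YAP and its TEAD partners gave a mixed picture, with 4 of 24 measured higher and 8 lower (median log2 difference -0.33), against 1 higher and 3 lower without all libraries numbered 3. Ankrd1 (chr19:36111961-36120099, minus strand), a stretch-responsive target, had 1.05, 2.36, 1.12 and 1.21 CPM on day 3, against 23.8, 29.3 and 28.7 CPM on day 1 (log2 difference -3.56 ± 0.22, adjusted p = 3.1e-07). F3, tissue factor, had 9.22, 11.3, 11.4 and 12.3 CPM on day 3, against 33.4, 30.5 and 32.3 CPM on day 1 (log2 difference -1.46 ± 0.24, adjusted p = 0.00046). Both were apart, and Myof, myoferlin, fell by less (log2 difference -0.81 ± 0.15, adjusted p = 0.00098). The matricellular pair differed. Cyr61 had 71, 168, 50.9 and 51.9 CPM on day 3, against 217, 213 and 204 CPM on day 1, all below day 1 (adjusted p = 0.066), and passed with the 7 libraries fitted alone (adjusted p = 0.011), with the block (adjusted p = 6.3e-05), without library 2 of day 3 (adjusted p = 0.027) and without all libraries numbered 2 (adjusted p = 9.2e-05). Ctgf, which cartilage also needs, had 92.5, 41.9, 57.3 and 57.1 CPM on day 3, against 17.8, 28.9 and 25 CPM on day 1, all above day 1 (adjusted p = 0.092), and passed with the 7 libraries fitted alone (adjusted p = 0.0039) and with the block (adjusted p = 0.033). Nt5e, the ecto-nucleotidase CD73, rose with 37.4, 29.5, 33.1 and 32.6 CPM on day 3, against 12.4, 7.7 and 6.87 CPM on day 1 (log2 difference 1.81 ± 0.41, adjusted p = 0.0043). Rbms3, an RNA-binding protein, had 178, 87.1, 127 and 128 CPM on day 3, against 53.1, 37.5 and 42.8 CPM on day 1 (log2 difference 1.5 ± 0.24, adjusted p = 0.00039). The letters of the TEAD motif GGAATG occurred in 12.6% of all matched promoters and in 9 of 16 of this list (56.2%). They occurred in 15.5% of genes that rose and in 11.8% of genes that fell.

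Immediate-early genes rose at about the share of all genes (15.7%) and fell less often than all genes (16.1%). Of 23 measured, 4 rose (17.4%) and 2 fell (8.7%), with a median log2 difference of 0.25. With the block 7 rose. Without library 1 of day 1 or library 3 or 4 of day 3, 1 fell. Egr1, an early growth response factor, had 56.7, 78.8, 40.9 and 38.7 CPM on day 3, against 7.8, 3.24 and 3.53 CPM on day 1 (log2 difference 3.25 ± 0.42, adjusted p = 6.4e-05). Nr4a1, an orphan nuclear receptor, had 36.8, 34.1, 31.5 and 30.1 CPM on day 3, against 7.13, 11.4 and 11.8 CPM on day 1 (log2 difference 1.64 ± 0.37, adjusted p = 0.0044). Jun, of the AP-1 dimer, had 91.1, 102, 84.8 and 91.1 CPM on day 3, against 26.2, 41.6 and 44.1 CPM on day 1 (log2 difference 1.32 ± 0.31, adjusted p = 0.0055). All 3 were apart between days. Fosl1, another AP-1 partner, went the other way, with 0.608, 1.42, 0.818 and 0.57 CPM on day 3, against 17.1, 19.1 and 17.9 CPM on day 1 (log2 difference -3.38 ± 0.37, adjusted p = 1.7e-05). Fos had 5.63, 65.3, 3.72 and 2.78 CPM on day 3, against 0.426, 0.288 and 0.557 CPM on day 1 and Fosb had 6.74, 71.8, 4.98 and 6.62 CPM on day 3, against 2.99, 2.81 and 3.4 CPM on day 1. Both were above day 1 in every day 3 library, and library 2 was far above the other 3. Neither passed (adjusted p = 0.063 for Fos, adjusted p = 0.18 for Fosb). Fos did with a pseudocount of 0.25 (adjusted p = 0.021), with the 7 libraries fitted alone (adjusted p = 0.032), with the block (adjusted p = 9.4e-05), with edgeR (adjusted p = 0.036) and without all libraries numbered 2 (adjusted p = 0.00016). Fosb did with the block (adjusted p = 0.0097) and without all libraries numbered 2 (adjusted p = 0.011).

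The genes of cell division fell. In mitosis 22 of 26 measured genes fell and none rose, with a median log2 difference of -1.08, and in DNA replication 21 of 30 fell and none rose (-0.66). For all 26 mitotic genes every day 3 library was below every day 1 library, against 26.4% of all genes, and the same held for 25 of 30 replication genes. Leaving out single libraries gave 15 to 22 genes that fell in each list, and leaving out all libraries numbered 1 gave 6 mitotic and 12 replication genes. Leaving out all numbered 3 gave 12 mitotic and 14 replication genes. Plk1 (chr7:122159439-122169873, plus strand), the kinase of mitotic entry, had 37.9, 49, 58.3 and 61.4 CPM on day 3, against 152, 135 and 138 CPM on day 1 (log2 difference -1.46 ± 0.21, adjusted p = 0.00018). Aurka, the spindle pole kinase, had 26.1, 40.8, 49 and 50.4 CPM on day 3, against 122, 109 and 108 CPM on day 1 (log2 difference -1.46 ± 0.28, adjusted p = 0.0014). Anln, anillin of the cleavage furrow, had 93.1, 101, 135 and 143 CPM on day 3, against 348, 317 and 315 CPM on day 1 (log2 difference -1.48 ± 0.24, adjusted p = 0.00042). Library 1 was the lowest of day 3 in all 3.

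Mki67, the Ki-67 antigen, had 352, 229, 453 and 460.2 CPM on day 3, against 919, 607 and 570.3 CPM on day 1 and did not pass (adjusted p = 0.087), although the days were apart. It passed with the 7 libraries fitted alone (adjusted p = 0.021). Rrm2 (chr12:24708241-24714146, plus strand), the ribonucleotide reductase subunit that limits DNA synthesis, fell the most of the replication genes, with 57.1, 83.3, 93.6 and 95 CPM on day 3, against 329, 311 and 326 CPM on day 1 (log2 difference -1.98 ± 0.19, adjusted p = 5.9e-06). Cdc6, which loads the replicative helicase, had 10.22, 11, 17 and 18.7 CPM on day 3, against 41.7, 41 and 36.1 CPM on day 1 (log2 difference -1.45 ± 0.24, adjusted p = 0.00045). Mcm6 (adjusted p = 0.28) and Mcm7 (adjusted p = 0.4), subunits of the helicase itself, did not pass.

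Mitotic genes are known for promoters that pair CCAAT boxes, bound by NF-Y, with a cell cycle homology region (CHR), bound by the DREAM and MuvB complexes. The CHR was spelled TTTGAA or TTCGAA and both motifs were searched on both strands. They occurred together in 572 of 9665 promoters (5.92%), in 4.47% of genes that rose, in 8.37% of genes that fell, in 9 of 22 matched mitotic genes (40.9%) and in 5 of 23 replication genes (21.7%). The promoters of Cdc20 (an activator of the anaphase complex), Top2a (topoisomerase II alpha) and Cdk1 (the mitotic kinase) are shown with both motifs in capitals. Cdc20 and Top2a were taken up for the motifs after their values were seen, and in the sequences ATTGG is CCAAT and TTCAAA is TTTGAA on the opposite strand.
Cdc20, chr4:118437353-118437406, minus strand: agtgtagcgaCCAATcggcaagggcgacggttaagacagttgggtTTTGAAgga
Top2a, chr11:99024190-99024426, minus strand: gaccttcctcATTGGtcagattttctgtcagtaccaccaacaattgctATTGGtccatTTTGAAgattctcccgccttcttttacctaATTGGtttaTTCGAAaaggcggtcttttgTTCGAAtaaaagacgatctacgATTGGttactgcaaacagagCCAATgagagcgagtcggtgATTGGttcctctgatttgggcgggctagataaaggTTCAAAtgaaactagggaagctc
Cdk1, chr10:69352939-69353130, minus strand: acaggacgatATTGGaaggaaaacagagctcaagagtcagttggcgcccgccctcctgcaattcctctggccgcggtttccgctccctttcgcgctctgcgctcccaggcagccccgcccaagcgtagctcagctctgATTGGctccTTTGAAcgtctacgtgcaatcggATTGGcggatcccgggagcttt

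Cdc20 had 94.1, 148, 157 and 166 CPM on day 3, against 296, 284 and 291 CPM on day 1 (log2 difference -1.07 ± 0.27, adjusted p = 0.0072). Top2a had 314, 285, 509 and 529 CPM on day 3, against 889, 780.1 and 799 CPM on day 1 (log2 difference -1.06 ± 0.30, adjusted p = 0.014; adjusted p = 0.052 without library 1 of day 1). Cdk1 had 123, 173, 213 and 196 CPM on day 3, against 345, 305 and 337 CPM on day 1 (log2 difference -0.92 ± 0.29, adjusted p = 0.025; adjusted p = 0.054 to 0.076 without library 1 of day 3 or any library of day 1). All 3 fell and had separate day ranges.

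**Figure D3:**
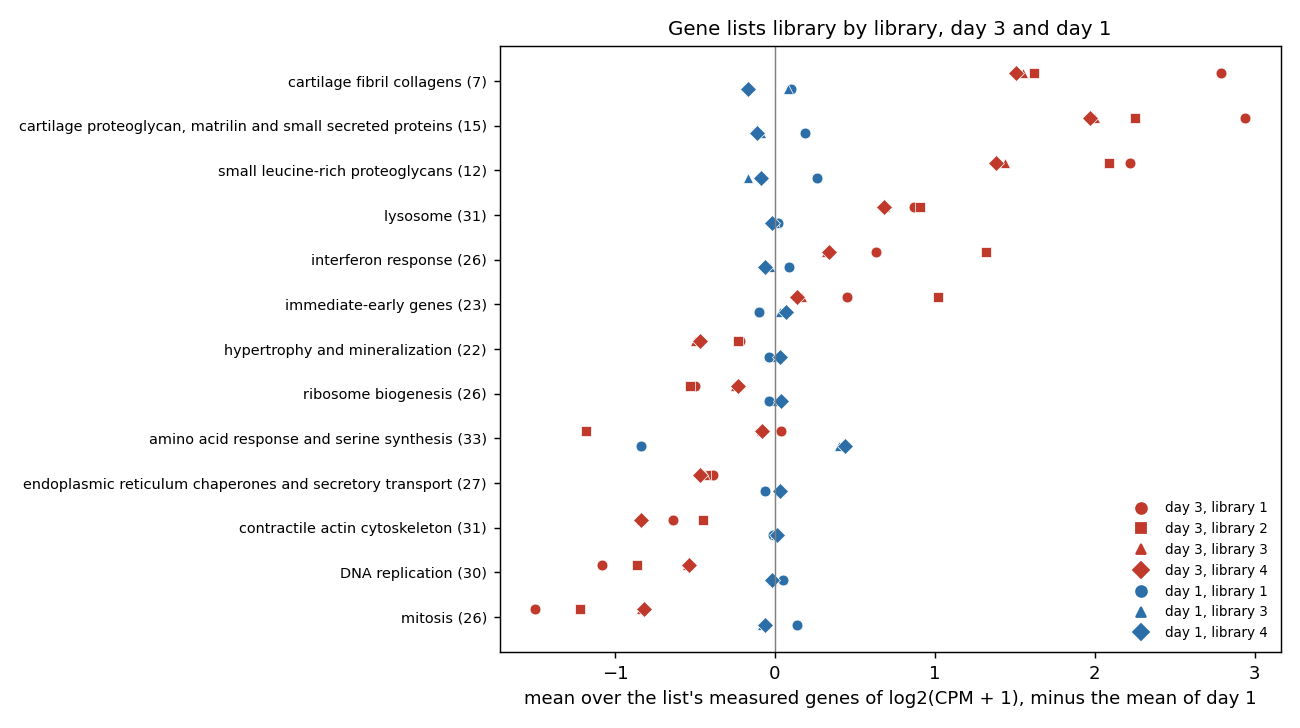
For 13 gene lists (measured genes in brackets) the horizontal axis gives each library's mean of log2(CPM + 1) over the list, minus the day 1 mean; red symbols are day 3 and blue symbols day 1. The days separate for matrix, lysosome, chaperone, contractile and cell division lists and overlap for the amino acid response, where library 2 of day 3 (-1.18) and library 1 of day 1 (-0.84) lie far below the others.

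Cell cycle regulators followed, with 8 of 22 measured lower and 1 higher (median log2 difference -0.42; 12 lower and 2 higher with the block). Myb had 13.6, 17.9, 12.2 and 13.6 CPM on day 3, against 58.7, 41.6 and 42.4 CPM on day 1 (log2 difference -1.66 ± 0.31, adjusted p = 0.0011). Its relative Mybl2, which works with MuvB on mitotic genes, had 9.67, 14.9, 18.7 and 20.3 CPM on day 3, against 37.2, 42.6 and 40.6 CPM on day 1 (log2 difference -1.33 ± 0.22, adjusted p = 0.0005). Ccnd2, a D-type cyclin, had 69.4, 89.1, 101 and 110.2 CPM on day 3, against 179.7, 191 and 195 CPM on day 1 (log2 difference -1.04 ± 0.22, adjusted p = 0.0024). Day 3 was below day 1 in every library for all 3. The riser was Cdkn1b, the inhibitor p27 (log2 difference 0.33 ± 0.11, adjusted p = 0.035), and the call was lost without some libraries (adjusted p = 0.053 to 0.17 without library 1, 2 or 4 of day 3 or any library of day 1).

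Targets of p53 moved in both directions, 10 of 22 measured lower and 6 higher (median log2 difference -0.38). Plk2 had 13.9, 17.1, 14.7 and 14.4 CPM on day 3, against 55.7, 69.2 and 70.4 CPM on day 1 (log2 difference -2.04 ± 0.15, adjusted p = 8.5e-07). Sesn1, a sestrin, rose, with 355, 393, 363 and 356 CPM on day 3, against 206, 174 and 189 CPM on day 1 (log2 difference 0.95 ± 0.14, adjusted p = 0.0002). Trp53inp1 rose too (log2 difference 1.11 ± 0.25, adjusted p = 0.0046). Bbc3, the cell death protein PUMA, had 22.4, 26.8, 30.9 and 32.9 CPM on day 3, against 10.6, 15.3 and 12.8 CPM on day 1 (log2 difference 1.07 ± 0.24, adjusted p = 0.0037). The days were apart for these 4. Leaving out library 4 of day 1 left 3 risers, and leaving out all libraries numbered 1 and 3 left 2 and 3.

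Ribosome biogenesis genes fell in 11 of 26 measured and rose in none (median log2 difference -0.34), with 7 fallers without library 4 of day 1 or without all libraries numbered 1, and 5 without those numbered 3. Bysl, of small-subunit assembly, had 34.9, 38.5, 42.5 and 44.2 CPM on day 3, against 74.5, 78.3 and 80.2 CPM on day 1 (log2 difference -0.94 ± 0.13, adjusted p = 0.00012). Bop1, of large-subunit processing, had 65.8, 74.8, 83.6 and 76.7 CPM on day 3, against 132, 133 and 129 CPM on day 1 (log2 difference -0.80 ± 0.15, adjusted p = 0.00097). Both were apart between days. Among the 10 largest gains of mean CPM were Eef2 and Eef1a1, the translation elongation factors. Eef2 had 9454, 10915, 9938 and 9897 CPM on day 3, against 4967, 5660.5 and 5744 CPM on day 1 (log2 difference 0.88 ± 0.26, adjusted p = 0.019). Eef1a1 had 6252, 9234, 7139 and 7171 CPM on day 3, against 4281, 4439 and 4880.5 CPM on day 1 (log2 difference 0.70 ± 0.25, adjusted p = 0.041). Both calls were lost when single libraries were left out (Eef2 adjusted p = 0.057 to 0.079 without any library of day 1; Eef1a1 adjusted p = 0.071 to 0.12 without library 2, 3 or 4 of day 3 or any library of day 1).

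Lysosomal genes rose. Of 31 measured 23 rose and 1 fell, with a median log2 difference of 0.77, and single libraries left out gave 17 to 22 that rose. Without all libraries numbered 1 there were 14, and without those numbered 3 there were 15. Ctsf (chr19:4855130-4860918, plus strand), cathepsin F, had 80.4, 75.2, 75.3 and 69.1 CPM on day 3, against 12.4, 13.7 and 13.9 CPM on day 1 (log2 difference 2.41 ± 0.18, adjusted p = 9.4e-07). Ctsl, cathepsin L, had 106, 92.2, 95.9 and 91.5 CPM on day 3, against 38.4, 32.5 and 34.4 CPM on day 1 (log2 difference 1.43 ± 0.18, adjusted p = 6.3e-05). Gaa, the acid glucosidase, had 355, 297, 282 and 264 CPM on day 3, against 136, 116 and 108 CPM on day 1 (log2 difference 1.31 ± 0.22, adjusted p = 0.0006). In each of these the 4 day 3 libraries were close together and above day 1. Gpnmb, a lysosomal glycoprotein, was at about 1 CPM on day 1, with 10.8, 16.1, 9.3 and 9.12 CPM on day 3, against 1.22, 1.37 and 0.742 CPM on day 1 (log2 difference 2.53 ± 0.67, adjusted p = 0.011). The Gpnmb call was lost with libraries 3 and 4 averaged (adjusted p = 0.061). The single faller, a subunit of the proton pump (Atp6v1h, log2 difference -0.36 ± 0.13, adjusted p = 0.047), lost its call with the block (adjusted p = 0.06) and when any single library was left out (adjusted p = 0.067 to 0.14 without any library of day 3 or any library of day 1).

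The CLEAR element, bound by TFEB and its relatives, has the core TCACGTGA, which contains the E-box CACGTG. The core lay in 1.85% of all matched promoters and in 4 of 23 lysosomal ones (17.4%), and the E-box in 981 of 9665 and 9 of 23 (39.1%). Among genes that rose the core lay in 2.07% and the E-box in 11.2%. Among genes that fell the shares were 1.58% and 9%. The core is shown in capitals for Ctsa (protective protein of galactosidase) and Ctsd (cathepsin D), as sites of 18 bases, and both genes were taken up for it after their values were seen.
Ctsa, chr2:164833755-164833772, plus strand: aactgTCACGTGAtgcag
Ctsd, chr7:142387914-142387931, minus strand: gcgtcTCACGTGAcccgt

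Both rose. Ctsa had 242, 232, 229.9 and 226 CPM on day 3, against 102, 124 and 121 CPM on day 1 (log2 difference 1.01 ± 0.17, adjusted p = 0.00067). Ctsd had 314, 259, 245 and 239 CPM on day 3, against 173, 162 and 149.6 CPM on day 1 (log2 difference 0.70 ± 0.19, adjusted p = 0.012; adjusted p = 0.052 without library 4 of day 1). The day ranges of both were apart.

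Growth hormone and IGF genes rose in 6 of 18 measured and fell in 1 (median log2 difference 0.48). Ghr (chr15:3317760-3583492, minus strand), the growth hormone receptor, had 92.4, 71.2, 86.8 and 86.3 CPM on day 3, against 18, 13.5 and 13.1 CPM on day 1 (log2 difference 2.43 ± 0.18, adjusted p = 8.5e-07). Socs2 (chr10:95385362-95417180, minus strand), which limits growth hormone signalling and is induced by it in other tissues, had 35, 32.8, 28.9 and 32.8 CPM on day 3, against 3.29, 3.89 and 3.71 CPM on day 1 (log2 difference 2.85 ± 0.18, adjusted p = 3.2e-07). Irs1, the docking protein of the insulin and IGF receptors, had 269, 164, 156 and 150.2 CPM on day 3, against 63, 56.3 and 58.1 CPM on day 1 (log2 difference 1.58 ± 0.19, adjusted p = 4.5e-05). The days were far apart in all 3 and the day 3 libraries of Socs2 were nearly level. Stc1, stanniocalcin 1, which inhibits the protease PAPPA, rose by less than these (log2 difference 1.52 ± 0.26, adjusted p = 0.0006). Pappa, which frees IGF from its binding proteins, fell, with 5.08, 2.91, 3.79 and 4.42 CPM on day 3, against 16.9, 22.7 and 20.9 CPM on day 1 (log2 difference -2.08 ± 0.49, adjusted p = 0.0054).

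**Figure D4:**
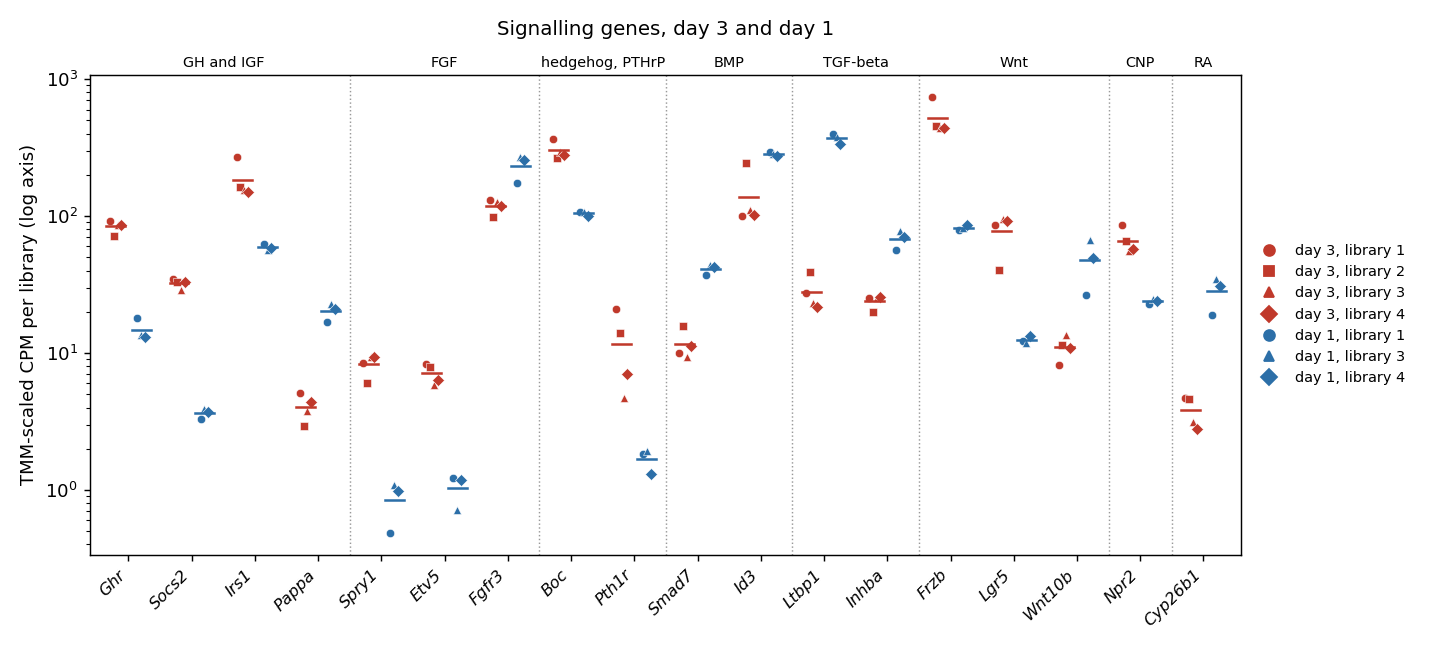
CPM in each library on a log axis for 18 signalling genes, with day 3 in red left of day 1 in blue; symbols are libraries and bars are day means. Ghr, Socs2, Frzb and Lgr5 lie higher on day 3 in all libraries, and Pappa, Smad7, Ltbp1 and Cyp26b1 lie lower.

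In the FGF list 4 of 16 measured genes rose and 2 fell (median log2 difference 0.13). The risers included feedback inhibitors. Spry1, Sprouty 1, had 8.45, 6.06, 9.3 and 9.33 CPM on day 3, against 0.487, 1.08 and 0.99 CPM on day 1 (log2 difference 2.32 ± 0.30, adjusted p = 6.3e-05). Il17rd, the inhibitor SEF, had 35.1, 27.4, 33.8 and 33.6 CPM on day 3, against 15.8, 6.55 and 7.3 CPM on day 1 (log2 difference 1.71 ± 0.25, adjusted p = 0.00017). Among the receptors, Fgfr1 rose, with 240.4, 191, 216 and 213 CPM on day 3, against 108, 116 and 106 CPM on day 1 (log2 difference 0.96 ± 0.18, adjusted p = 0.0013). Fgfr3, the receptor mutated in achondroplasia, fell, with 131, 98.8, 127 and 119 CPM on day 3, against 174, 272 and 256 CPM on day 1 (log2 difference -0.95 ± 0.23, adjusted p = 0.0067). All 4 were apart between days. The Fgfr3 call was lost with libraries 3 and 4 averaged (adjusted p = 0.061).

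Hedgehog and PTHrP genes gave 4 risers and 3 fallers of 15 measured (median log2 difference 0.05). The risers were cell surface proteins. Boc had 367, 266, 295 and 281 CPM on day 3, against 107, 108 and 99.9 CPM on day 1 (log2 difference 1.51 ± 0.17, adjusted p = 2.2e-05), Cdon, its relative, rose by less (log2 difference 1.09 ± 0.18, adjusted p = 0.0005), and so did Gas1 (log2 difference 0.87 ± 0.23, adjusted p = 0.011), all of them coreceptors that bind hedgehog. Pth1r, the receptor of PTHrP, had 21, 14.1, 4.69 and 7.05 CPM on day 3, against 1.83, 1.94 and 1.3 CPM on day 1 (log2 difference 2.05 ± 0.53, adjusted p = 0.0088). For all 4 every day 3 library was above day 1, Pth1r with the widest spread. Ptch1, receptor and target of hedgehog, had 57.7, 39, 48.8 and 48.8 CPM on day 3, against 73.3, 71.1 and 61.5 CPM on day 1, all below day 1, and did not pass (adjusted p = 0.23), but did with the 7 libraries fitted alone (adjusted p = 0.015). Pthlh, which encodes PTHrP, was low on both days, with 0.608, 1.42, 0.892 and 1.28 CPM on day 3, against 2.01, 2.45 and 2.29 CPM on day 1 (log2 difference -0.68 ± 0.21, adjusted p = 0.021), and fell, a call lost without some libraries (adjusted p = 0.05 to 0.079 without library 1 or 3 of day 3 or library 3 or 4 of day 1). Leaving out library 3 or 4 of day 1 or library 3 of day 3 left 1 faller, Gpr161, a receptor of the cilium that restrains the pathway (log2 difference -0.62 ± 0.17, adjusted p = 0.011).

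BMP genes gave 6 risers (20.7%) and 5 fallers (17.2%) of 29 measured, near the shares of all genes (15.7% and 16.1%). Their median log2 difference was -0.04. In this list 0 to 2 risers were left without any single library other than library 2 of day 3, against 10 with the block. The fallers were mostly targets and inhibitors inside the cell. Smad7 had 10.05, 15.7, 9.37 and 11.3 CPM on day 3, against 36.9, 44.1 and 42.6 CPM on day 1 (log2 difference -1.76 ± 0.22, adjusted p = 6.2e-05). Smad6 fell as well (log2 difference -1.28 ± 0.25, adjusted p = 0.0017). Both are inhibitory SMADs that BMP and TGF-beta induce. Id3 had 99.4, 243, 111 and 102 CPM on day 3, against 293, 283 and 276 CPM on day 1 (log2 difference -1.14 ± 0.32, adjusted p = 0.014). Id2 fell by as much (log2 difference -1.14 ± 0.29, adjusted p = 0.008). Both are inhibitors of DNA binding that BMP induces. The Id3 call was lost with libraries 3 and 4 averaged (adjusted p = 0.085). The days were apart, and library 2 was the highest of day 3 in all 4. Bmpr1b, a BMP receptor of cartilage, rose (log2 difference 1.16 ± 0.40, adjusted p = 0.04; adjusted p = 0.077 to 0.12 without library 1, 3 or 4 of day 3 or any library of day 1). Grem1, a secreted BMP antagonist, had 239, 83.9, 167 and 170.3 CPM on day 3, against 38.3, 53.3 and 49.4 CPM on day 1 (adjusted p = 0.17). It passed with the 7 libraries fitted alone (adjusted p = 0.0026), with the block (adjusted p = 0.013) and without all libraries numbered 2 (adjusted p = 0.0023).

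TGF-beta genes gave 5 of 20 in each direction (median log2 difference 0.12), with 2 or 3 risers left without library 1, 3 or 4 of day 1 or library 1 of day 3, and 9 with the block. Ltbp1 (chr17:75005568-75392512, plus strand), a latent TGF-beta binding protein, had 27.3, 38.9, 23.2 and 21.8 CPM on day 3, against 398, 377 and 334 CPM on day 1 (log2 difference -3.72 ± 0.29, adjusted p = 9.7e-07). Its relative Ltbp2, which does not bind TGF-beta, fell by less (log2 difference -2.28 ± 0.37, adjusted p = 0.0004). Inhba, which makes activin A, had 25.1, 19.8, 25.3 and 25.5 CPM on day 3, against 56.4, 77.2 and 70.9 CPM on day 1 (log2 difference -1.47 ± 0.29, adjusted p = 0.0017). Skil (-1.05 ± 0.13) and Pmepa1 (-1.02 ± 0.13), feedback inhibitors induced by TGF-beta, fell by log2 differences of similar size. Receptors rose. Tgfbr2 had 116, 107, 79.1 and 79.2 CPM on day 3, against 59.5, 49.4 and 52.3 CPM on day 1 (log2 difference 0.80 ± 0.16, adjusted p = 0.002). Tgfbr3, betaglycan, rose by more (log2 difference 1.55 ± 0.21, adjusted p = 0.00011). All 7 were apart between days.

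Wnt genes rose in 9 of 38 measured and fell in 4 (median log2 difference 0.26), and 5 rose without all libraries numbered 1 or without those numbered 3. Frzb (chr2:80411970-80447625, minus strand), a secreted Wnt antagonist of cartilage, had 745, 455, 439 and 437 CPM on day 3, against 78.8, 81.6 and 86.6 CPM on day 1 (log2 difference 2.6 ± 0.48, adjusted p = 0.0011). Lgr5, a receptor of R-spondins, had 86.3, 40.5, 95.3 and 91.5 CPM on day 3, against 12.2, 11.8 and 13.2 CPM on day 1 (log2 difference 2.49 ± 0.35, adjusted p = 0.00015). Its relative Lgr4 fell, with 68.5, 69.4, 74.7 and 78 CPM on day 3, against 138, 209 and 205 CPM on day 1 (log2 difference -1.3 ± 0.13, adjusted p = 1.1e-05). The ligand Wnt5b, which acts in the growth plate, had 5.58, 10.8, 8.55 and 8.69 CPM on day 3, against 1.64, 1.51 and 1.61 CPM on day 1 (log2 difference 1.83 ± 0.25, adjusted p = 0.00012). Wnt10b, which drives bone formation, had 8.18, 11.5, 13.5 and 10.8 CPM on day 3, against 26.7, 66.6 and 49.7 CPM on day 1 (log2 difference -1.94 ± 0.34, adjusted p = 0.00072). The ligand Wnt16 (log2 difference 1.92 ± 0.39, adjusted p = 0.0022) and the receptor Fzd4 (log2 difference 1.33 ± 0.31, adjusted p = 0.0048) rose. The days of all 7 were apart, Lgr5 with a low library 2 on day 3.

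In other growth plate pathways few genes passed. Npr2, the receptor of C-type natriuretic peptide, rose alone of 5 measured, with 86.1, 65.6, 55.6 and 58 CPM on day 3, against 22.7, 24.8 and 24.1 CPM on day 1 (log2 difference 1.42 ± 0.22, adjusted p = 0.00031). Lfng, which glycosylates Notch, fell, with 6.08, 8.5, 5.58 and 5.98 CPM on day 3, against 17.9, 18.5 and 16.1 CPM on day 1 (log2 difference -1.31 ± 0.20, adjusted p = 0.00027). Hes6 rose weakly (log2 difference 0.61 ± 0.18, adjusted p = 0.021; adjusted p = 0.056 to 0.094 without library 2 of day 3 or library 3 or 4 of day 1), the other 7 Notch genes not passing. Cyp26b1, which degrades retinoic acid, fell, with 4.7, 4.64, 3.12 and 2.78 CPM on day 3, against 18.8, 34.8 and 31.1 CPM on day 1 (log2 difference -2.58 ± 0.41, adjusted p = 0.00038), and 1 of the other 10 retinoic acid genes rose (Rxrb, adjusted p = 0.06 to 0.14 without library 2 or 3 of day 3 or any library of day 1). Npr2, Lfng and Cyp26b1 were apart between days.

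Nuclear receptors and glucocorticoid targets gave 5 risers and 3 fallers of 18 measured (median log2 difference 0.41). Klf15, a glucocorticoid target, had 27.3, 25.2, 27.1 and 29.2 CPM on day 3, against 5.0, 5.25 and 4.7 CPM on day 1 (log2 difference 2.24 ± 0.29, adjusted p = 7.6e-05). Thra, the thyroid hormone receptor that acts in the growth plate, had 215, 204, 168 and 169 CPM on day 3, against 75.4, 97 and 104 CPM on day 1 (log2 difference 1.04 ± 0.21, adjusted p = 0.002). Klf9, a target of both hormones, had 82.5, 70.5, 81.7 and 81.4 CPM on day 3, against 40.3, 43 and 44.4 CPM on day 1 (log2 difference 0.88 ± 0.11, adjusted p = 6e-05). Against these, Sgk1, a kinase gene also induced by glucocorticoids, fell with 85.2, 145, 67.2 and 68.8 CPM on day 3, against 309, 228 and 238 CPM on day 1 (log2 difference -1.55 ± 0.27, adjusted p = 0.00074). Vdr, the vitamin D receptor, had 18, 17.2, 12.6 and 14.3 CPM on day 3, against 26.9, 27.4 and 28.8 CPM on day 1 (log2 difference -0.81 ± 0.15, adjusted p = 0.0012). All 5 were apart between days.

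Clock genes rose in 7 of 17 measured and fell in 1 (median log2 difference 0.32), with 3 fallers without library 1 of day 1. Dbp (chr7:45705088-45710203, plus strand), a PAR bZIP output factor, had 21.3, 19.5, 24.2 and 23.8 CPM on day 3, against 3.47, 2.59 and 2.23 CPM on day 1 (log2 difference 2.63 ± 0.20, adjusted p = 9.4e-07). Tef, its relative, had 132, 135, 122 and 118 CPM on day 3, against 61.3, 42.8 and 40.1 CPM on day 1 (log2 difference 1.4 ± 0.15, adjusted p = 1.6e-05). Bhlhe41, a repressor, had 25.1, 26.9, 29.2 and 28.3 CPM on day 3, against 7.37, 4.46 and 4.52 CPM on day 1 (log2 difference 2.17 ± 0.26, adjusted p = 3.8e-05). Bhlhe40 rose by less (log2 difference 1.46 ± 0.23, adjusted p = 0.00032). Per3 rose too (log2 difference 1.47 ± 0.26, adjusted p = 0.00072). Clock itself fell, with 110.2, 78, 101 and 107 CPM on day 3, against 173, 164 and 166 CPM on day 1 (log2 difference -0.76 ± 0.15, adjusted p = 0.0015), and Arntl, its partner BMAL1, did not pass (adjusted p = 0.06), but did with the 7 libraries fitted alone (adjusted p = 0.04), with DESeq2 (adjusted p = 0.049) and without library 1 of day 1 (adjusted p = 0.04). Each of the 6 that passed was apart between days. The time of day at harvest is not given in the labels. The E-box CACGTG lay in 5 of 15 matched clock promoters (33.3%) against 981 of all 9665. It lay in 11.2% of genes that rose and 9% of genes that fell.

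Redox genes stayed near the shares of all genes that rose (15.7%) and fell (16.1%). Of 26 measured, 4 rose (15.4%) and 5 fell (19.2%), with a median log2 difference of -0.16. With the block 8 fell. Several fallers are known targets of NRF2. Txnrd1, thioredoxin reductase, had 249.5, 277, 305 and 305 CPM on day 3, against 563, 489 and 515 CPM on day 1 (log2 difference -0.88 ± 0.10, adjusted p = 3.7e-05). Gclc (log2 difference -0.77 ± 0.09, adjusted p = 4.4e-05) and Gclm (log2 difference -0.83 ± 0.11, adjusted p = 8.7e-05), which start glutathione synthesis, and Srxn1, sulfiredoxin (log2 difference -0.93 ± 0.16, adjusted p = 0.00071), fell likewise. Day 3 was below day 1 in every library for all 4. Txnip, which binds thioredoxin, rose, with 376, 267, 274 and 277 CPM on day 3, against 56.3, 67.7 and 67.9 CPM on day 1 (log2 difference 2.2 ± 0.20, adjusted p = 3e-06). The metallothionein Mt1 rose, with 12.7, 11.1, 17.2 and 16.4 CPM on day 3, against 1.34, 1.65 and 2.1 CPM on day 1 (log2 difference 2.49 ± 0.40, adjusted p = 0.00041). The selenium carrier Sepp1 rose too, with 39.9, 83.4, 29.1 and 29 CPM on day 3, against 13.2, 6.69 and 6.19 CPM on day 1 (log2 difference 2.19 ± 0.35, adjusted p = 0.00041).

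Energy metabolism showed few firm calls. In glycolysis and hypoxia 5 of 33 measured rose and 4 fell (median log2 difference -0.16), with 0 to 2 fallers without any library of day 1 or library 1 or 2 of day 3, 3 risers without library 1 or 2 of day 3, and 7 fallers with the block. Pfkfb3, which makes the activator of phosphofructokinase, had 138, 114, 107 and 105 CPM on day 3, against 60.5, 61.7 and 66.5 CPM on day 1 (log2 difference 0.87 ± 0.11, adjusted p = 6.3e-05). Pdk1, which shuts pyruvate out of the mitochondrion, rose too (log2 difference 1.0 ± 0.25, adjusted p = 0.0079). Gapdh had 153, 218, 204 and 198 CPM on day 3, against 354, 334 and 313 CPM on day 1 (log2 difference -0.80 ± 0.24, adjusted p = 0.019; adjusted p = 0.055 to 0.065 without library 1 of day 3 or library 1 or 3 of day 1). Gapdh is a common reference for other transcripts, and it and Eef1a1 have many near-identical pseudogenes that can share reads, so both values are uncertain. In oxidative phosphorylation 1 of 34 rose and 4 fell (median -0.12), 2 fell without library 3 or 4 of day 1 or library 1, 3 or 4 of day 3, and 11 fell with the block. Cyc1, cytochrome c1, had 74.9, 99.3, 91.3 and 94.9 CPM on day 3, against 144, 138 and 145 CPM on day 1 (log2 difference -0.66 ± 0.11, adjusted p = 0.00054). In cholesterol and fatty acid synthesis 2 of 30 rose and 1 fell (median 0.06), and 1 to 4 rose without single libraries, the most without library 1 of day 1. Insig1, which holds the sterol sensor in place, had 225, 224, 197 and 202 CPM on day 3, against 127, 87.6 and 94.4 CPM on day 1 (log2 difference 1.05 ± 0.22, adjusted p = 0.0023).

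Amino acid response genes differed between libraries of 1 day. Of 33 measured 7 fell and none rose (median log2 difference -0.32). Slc7a11, the cystine carrier, had 25.1, 5.67, 20.7 and 20.1 CPM on day 3, against 17.4, 107 and 116 CPM on day 1. Psat1, of serine synthesis, had 165, 121, 226 and 222 CPM on day 3, against 225, 402 and 428 CPM on day 1, and Aars, an alanyl tRNA synthetase, had 314, 116, 296 and 284 CPM on day 3, against 246, 563 and 556 CPM on day 1. Library 2 was the lowest of day 3 and library 1 the lowest of day 1 in each, and the ranges overlapped. Slc7a11 passed (log2 difference -1.87 ± 0.60, adjusted p = 0.028), but not without some libraries (adjusted p = 0.078 to 0.14 without library 2 of day 3 or library 3 or 4 of day 1), and so did Psat1 (log2 difference -0.92 ± 0.27, adjusted p = 0.016; adjusted p = 0.075 to 0.086 without library 3 or 4 of day 1). Aars did not pass (adjusted p = 0.065), but did with DESeq2 (adjusted p = 0.028), without library 1 of day 1 (adjusted p = 0.015) and without all libraries numbered 1 (adjusted p = 0.025). The list had 2 fallers and 1 riser without library 2 of day 3, 13 fallers without library 1 of day 1, and 1 without library 3 or 4 of day 1.

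Complement genes rose in 5 of 10 measured, with none lower (median log2 difference 1.06), 3 being left without library 3 or 4 of day 1 or library 1 or 2 of day 3. C4b had 19.6, 15.2, 10.11 and 8.76 CPM on day 3, against 0, 0.072 and 0.0619 CPM on day 1, with 806 reads on day 3 against 2 on day 1 (adjusted p = 0.00011). Its near copy C4a can share such reads, so the value is uncertain. Clu, clusterin, an extracellular chaperone, had 195, 229.7, 161 and 146 CPM on day 3, against 29.9, 28.9 and 30.1 CPM on day 1 (log2 difference 2.56 ± 0.33, adjusted p = 6.3e-05). C1s1, a protease of the first component, had 16, 27.1, 8.92 and 7.26 CPM on day 3, against 4.33, 2.09 and 3.09 CPM on day 1 (log2 difference 1.79 ± 0.40, adjusted p = 0.0037). The day ranges were apart.

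Interferon-response genes rose in 7 of 26 measured and fell in none (median log2 difference 0.54), with 4 risers without library 3 or 4 of day 1. Without library 2 of day 3 there were 5. Without all libraries numbered 1, 3 or 4 there were 2 each time, and with libraries 3 and 4 averaged there were 3. The 7 libraries fitted alone gave 11 and DESeq2 gave 15. Ifit1 had 12.3, 22.9, 9.67 and 9.05 CPM on day 3, against 3.05, 2.73 and 1.86 CPM on day 1 (log2 difference 1.95 ± 0.41, adjusted p = 0.0026). Irf9, the factor of the interferon complex, had 19.6, 33, 13.5 and 15.1 CPM on day 3, against 8.16, 10.8 and 8.84 CPM on day 1 (log2 difference 0.98 ± 0.29, adjusted p = 0.019; adjusted p = 0.061 to 0.068 without library 1 or 4 of day 1). Both were apart between days with library 2 the highest of day 3. In MHC class I presentation 2 of 13 rose (median 0.42). H2-T23 had 9.78, 18.3, 8.03 and 9.12 CPM on day 3, against 2.99, 1.8 and 2.04 CPM on day 1 (log2 difference 1.86 ± 0.29, adjusted p = 0.00033), a value that near copies of this family make uncertain. Erap1, which trims peptides, rose by less (log2 difference 0.56 ± 0.12, adjusted p = 0.0028).

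Inflammatory genes did not follow. In the acute-phase, chemokine and NF-kB list 3 of 23 measured rose and 5 fell (median log2 difference 0.10), with 3 fallers without library 1 of day 1 and 8 without library 2 of day 3. Ptx3 (chr3:66219910-66225805, plus strand), pentraxin 3, had 60.8, 108, 39 and 37.6 CPM on day 3, against 425, 410.1 and 436 CPM on day 1 (log2 difference -2.9 ± 0.35, adjusted p = 4e-05). Csf1, macrophage colony-stimulating factor, fell by less (log2 difference -1.31 ± 0.25, adjusted p = 0.0012). Cxcl12 (chr6:117168535-117181367, plus strand), a chemokine of mesenchymal cells, rose to a level that was nearly the same in all day 3 libraries, with 135, 139, 141 and 138 CPM on day 3, against 24.9, 18.7 and 18 CPM on day 1 (log2 difference 2.71 ± 0.36, adjusted p = 9.3e-05). Ptx3, Csf1 and Cxcl12 were apart between days. Lcn2, lipocalin 2, had 2.93, 3.7, 2.45 and 2.92 CPM on day 3, against 0, 0.072 and 0.124 CPM on day 1 (adjusted p = 0.012), with 174 reads on day 3 against 3 on day 1. Prostaglandin genes fell in 5 of 10 measured and rose in none (median -0.38), 3 being left without library 4 of day 1 or library 1 of day 3. Ptgs2, cyclooxygenase 2, had 3.65, 5.19, 3.42 and 3.28 CPM on day 3, against 29.9, 51.4 and 46.9 CPM on day 1 (log2 difference -3.14 ± 0.37, adjusted p = 3.5e-05). Pla2g4a, which frees its substrate, fell by less (log2 difference -1.17 ± 0.20, adjusted p = 0.0007).

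Adhesion receptors gave 5 risers and 3 fallers of 23 measured (median log2 difference 0.20), with 3 risers without library 4 of day 1 or library 1 of day 3 and 5 fallers with the block. Itgbl1 (chr14:123659971-123975618, plus strand), a secreted protein with integrin-like repeats, had 81.9, 63.6, 33.6 and 34.2 CPM on day 3, against 2.74, 0.432 and 0.866 CPM on day 1 (log2 difference 4.55 ± 0.35, adjusted p = 9.4e-07). Itga7, a laminin receptor, had 49.9, 28.1, 39.1 and 36.5 CPM on day 3, against 2.74, 1.22 and 1.3 CPM on day 1 (log2 difference 3.85 ± 0.35, adjusted p = 2.9e-06). Itga10, a collagen II receptor of chondrocytes, had 161, 108, 81.7 and 76.4 CPM on day 3, against 42.2, 54.1 and 49.1 CPM on day 1 (log2 difference 1.07 ± 0.31, adjusted p = 0.018; adjusted p = 0.051 to 0.069 without library 1 of day 3 or library 1 or 4 of day 1). Itga11, a receptor of interstitial collagen, fell, with 113, 94.4, 115 and 121 CPM on day 3, against 239, 278 and 235 CPM on day 1 (log2 difference -1.17 ± 0.20, adjusted p = 0.00051), as did Itga3 (log2 difference -1.47 ± 0.26, adjusted p = 0.00069). The days did not overlap for these 5. In the cadherin and neural adhesion list 2 of 8 rose and 1 fell, and Cdh13 was the riser that held without each single library (log2 difference 0.89 ± 0.20, adjusted p = 0.0045).

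Vascular ligands and receptors gave 5 risers and 3 fallers of 17 measured (median log2 difference 0.29), and 4 and 3 when any single library was left out. Angpt1, an angiopoietin, had 107, 109, 66.6 and 63.1 CPM on day 3, against 23, 14.8 and 15.2 CPM on day 1 (log2 difference 2.21 ± 0.25, adjusted p = 2.5e-05). Angptl4 rose too (log2 difference 1.98 ± 0.26, adjusted p = 8.4e-05). Pdgfra, a receptor of mesenchymal growth factors, had 89.3, 89.6, 66.2 and 63 CPM on day 3, against 47.4, 38.5 and 38.7 CPM on day 1 (log2 difference 0.86 ± 0.14, adjusted p = 0.00037). The guidance ligands Sema3e, with 15.6, 22.9, 16.4 and 19.1 CPM on day 3, against 75, 62.5 and 61.9 CPM on day 1 (log2 difference -1.8 ± 0.18, adjusted p = 8.4e-06) and Sema3a (log2 difference -1.17 ± 0.28, adjusted p = 0.0057) fell. All 5 were apart between days.

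Limb and mesenchymal transcription factors gave 5 of 28 in each direction (17.9%), near the shares of all genes (15.7% and 16.1%). Their median log2 difference was -0.09. There were 1 to 3 risers without any library of day 1 or library 1, 3 or 4 of day 3. There were 3 fallers without library 3 of day 1 and 8 with the block. Hoxa11, a limb patterning gene, fell with 45.3, 61.9, 51.3 and 46.9 CPM on day 3, against 83.8, 77.5 and 87.7 CPM on day 1 (log2 difference -0.69 ± 0.12, adjusted p = 0.0007). Hoxd9 rose (log2 difference 0.73 ± 0.17, adjusted p = 0.0056). Imprinted growth genes gave 3 risers and 1 faller of 10 (median 0.35), with no riser without library 3 of day 1 or library 1 of day 3 and 1 without library 4 of day 1 or library 3 or 4 of day 3. Peg10 was the faller, with 1171, 886, 848 and 879 CPM on day 3, against 2058, 2043 and 2033 CPM on day 1 (log2 difference -1.12 ± 0.25, adjusted p = 0.0037). Of 17 channel genes 1 rose and 1 fell. Piezo2, a mechanosensitive channel, had 61.4, 56.8, 30.04 and 32.9 CPM on day 3, against 18.7, 16.7 and 14.3 CPM on day 1 (log2 difference 1.34 ± 0.29, adjusted p = 0.0032). Cacna1h, a calcium channel, had 23.2, 21.8, 21.4 and 23.8 CPM on day 3, against 66.6, 107 and 96.9 CPM on day 1 (log2 difference -1.93 ± 0.43, adjusted p = 0.0039). Of 12 noncoding RNA genes 1 rose. Malat1, a nuclear long noncoding RNA, had 15517, 3354, 17386 and 20515 CPM on day 3, against 5671, 8302 and 6943 CPM on day 1. Library 2 of day 3 was the lowest of all 7, and Malat1 did not pass (adjusted p = 0.44), but did with the block (adjusted p = 0.0097) and without all libraries numbered 2 (adjusted p = 0.01).

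**Figure D5:**
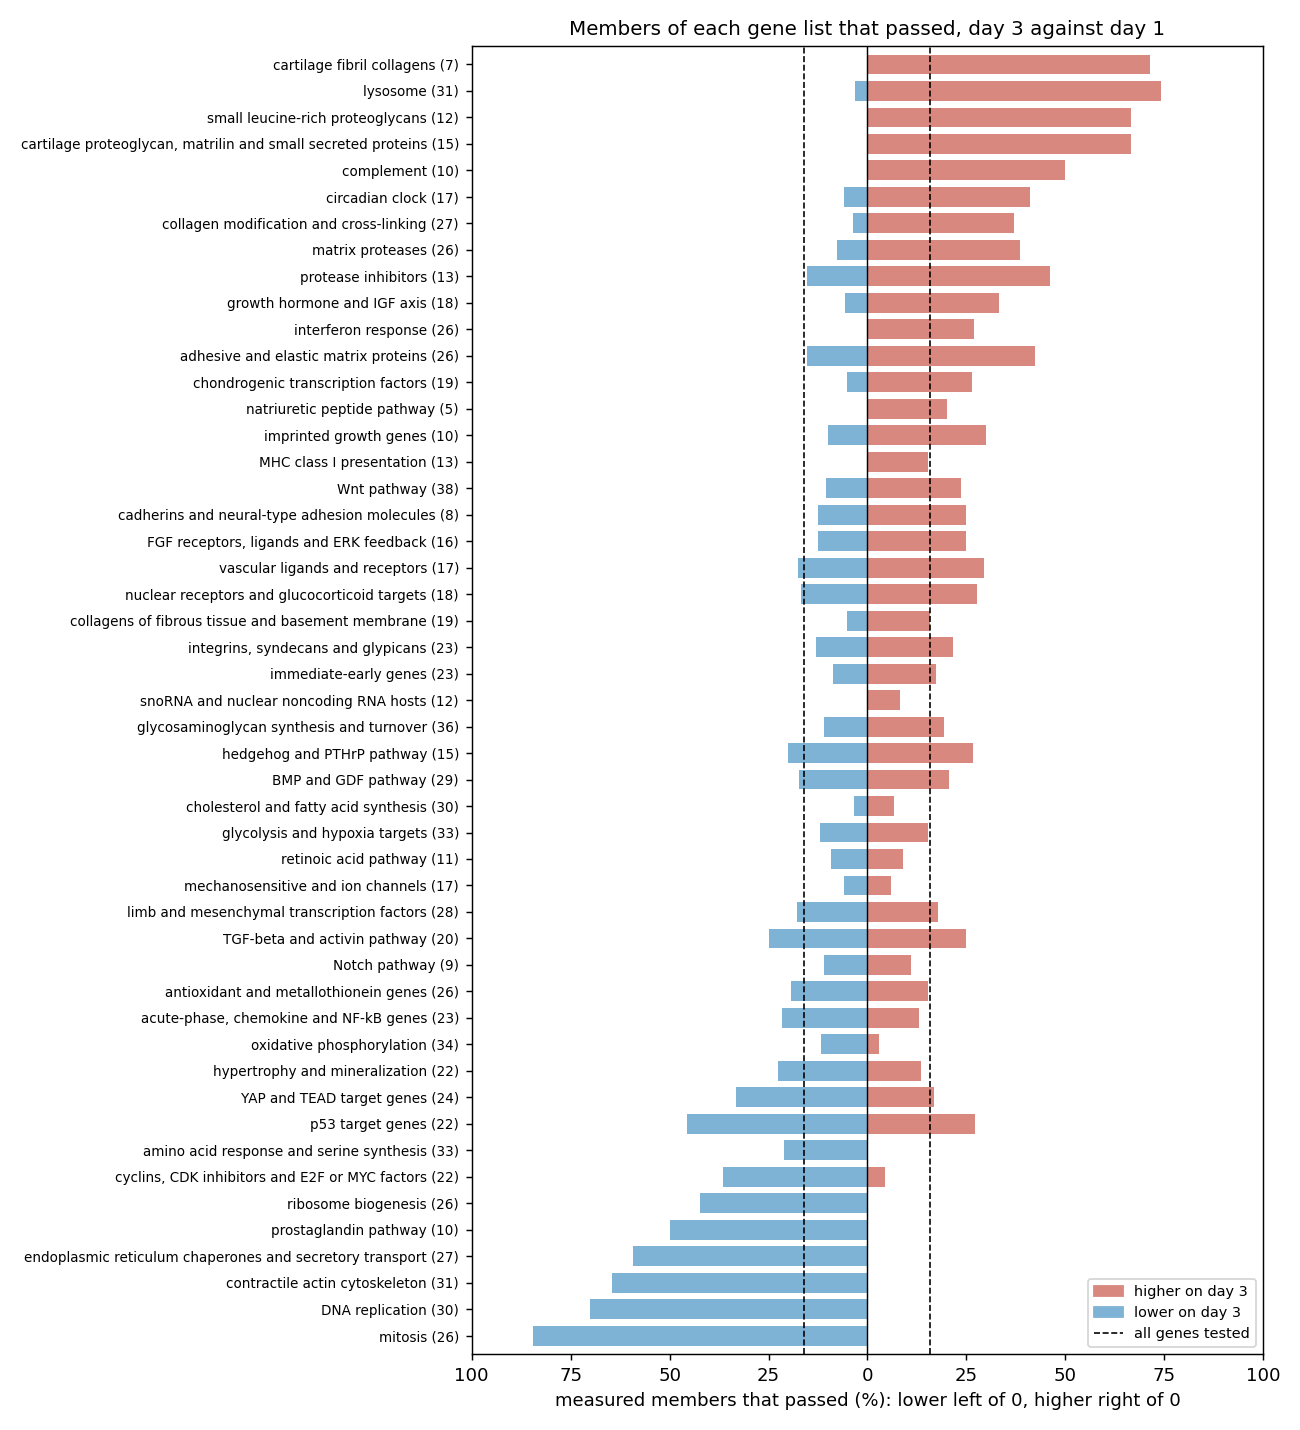
For each of 49 gene lists (measured genes in brackets) the bars give the percentage of measured genes that fell (blue, to the left) or rose (red, to the right), and dashed lines mark the same shares over all genes tested (16.1% and 15.7%). Cartilage matrix and lysosomal lists reach farthest to the right, and mitosis, DNA replication, contractile and chaperone lists farthest to the left.

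Among the genes chosen by size of change that belong to no list, some were at about 1 CPM on day 1. Slc40a1, the iron exporter ferroportin, had 83.4, 61.9, 36.1 and 41 CPM on day 3, against 2.44, 1.3 and 1.92 CPM on day 1 (log2 difference 4.24 ± 0.42, adjusted p = 7.6e-06). Scara5, a ferritin receptor, had 24.2, 25.2, 30.6 and 31 CPM on day 3, against 1.22, 1.15 and 1.42 CPM on day 1 (log2 difference 3.66 ± 0.46, adjusted p = 5.6e-05). Both were apart between days. Shisa2, an inhibitor of Wnt and FGF receptor maturation, had 107, 96.3, 68.9 and 83.4 CPM on day 3, against 10.5, 6.62 and 6.25 CPM on day 1 (log2 difference 3.37 ± 0.26, adjusted p = 9.4e-07). Tgm2, tissue transglutaminase, which cross-links matrix and is known from growth plate chondrocytes, had 43.5, 47.1, 40.9 and 39.2 CPM on day 3, against 4.75, 5.76 and 5.75 CPM on day 1 (log2 difference 2.77 ± 0.21, adjusted p = 9.4e-07). Fam20c, the kinase of secreted proteins, rose by less (log2 difference 1.78 ± 0.13, adjusted p = 8.5e-07).

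On the falling side, Gdnf, a neurotrophic factor, had 0.718, 1.34, 0.967 and 0.641 CPM on day 3, against 13.8, 9.86 and 10.5 CPM on day 1 (log2 difference -2.69 ± 0.27, adjusted p = 7.7e-06). Sox11, a factor of mesenchymal and neural progenitors, had 1.38, 1.34, 3.5 and 4.42 CPM on day 3, against 13.8, 20.7 and 25.9 CPM on day 1 (log2 difference -2.59 ± 0.41, adjusted p = 0.00036). Day 3 was the lower in every library. Cd24a, a surface glycoprotein, had 468, 711, 471 and 469 CPM on day 3, against 1662, 1554 and 1689 CPM on day 1 (log2 difference -1.65 ± 0.22, adjusted p = 8.7e-05), among the 10 largest losses of mean CPM. Fig4, a phosphoinositide phosphatase, had little spread, with 72, 87.8, 78.8 and 77.2 CPM on day 3, against 261, 243 and 246 CPM on day 1 (log2 difference -1.65 ± 0.10, adjusted p = 3.1e-07).

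Some genes were read on only 1 of the days. Emilin3, a matrix protein of the elastin interface, had 106 reads on day 3, at 2.65, 1.57, 1.64 and 1.14 CPM, against 0 reads on day 1 (adjusted p = 0.0015). C1qtnf2 had 57 reads on day 3, at 1.66, 0.944, 0.446 and 0.641 CPM, against 0 on day 1 (adjusted p = 0.0075). Of genes with 0 reads in all day 3 libraries, Tmem171 had the highest mean on day 1, with 21 reads over the 3 libraries.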

How the data were processed

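The deposited table holds TMM-scaled CPM per gene and library, a signal in which each value is a whole multiple of what 1 read is worth. All values (100%, tolerance 0.001) gave whole reads, of which the 7 libraries hold 12492537 to 18633097. The standard errors given come from the limma fit and rest on the spread between libraries. Reads were aligned with STAR to GRCm38, counted with featureCounts and scaled with edgeR, per the submitters' processing notes. The strand setting and the versions used are not given in the sources at hand. Reads from overlapping and antisense genes cannot be told apart.

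From these values, log2(CPM + 1) was fitted, for genes averaging at least 1 CPM, with limma 3.58.1 (trended prior, R 4.3.3) over all 15 libraries with the day as the single factor, and day 3 minus day 1 was tested with Benjamini-Hochberg adjustment, threshold 0.05. The script was tested on simulated data. Alternatives were a pseudocount of 0.25 or 5, no filter or a mean of 5, the 7 libraries alone, the library number as a block, libraries 3 and 4 averaged, edgeR 4.0.16 and DESeq2 1.42.0 on the recovered reads, other scaling, and libraries left out. Deviations from the day means correlated between the same-numbered libraries of days 3 and 1 (r = 0.191 for number 1, 0.301 for 3 and 0.194 for 4). Differently numbered libraries gave r = -0.323 to 0.224. Library 4 of day 3 with library 3 of day 1 gave 0.224, and library 2 of day 3 with library 1 of day 1 gave 0.2. Within days 3 and 1, same numbers are therefore not told apart from unlike numbers by this. Between days 3 and 5, same-numbered libraries gave r = 0.351, 0.727, 0.56 and 0.424 for numbers 1 to 4. Other pairs of days gave -0.067 to 0.338 for same numbers. Unlike numbers were compared for days 3 and 1 only, so a link by number is not excluded. A pairing by number was assumed for the block alone and not used in the main fit. It is not stated in the labels, and day 1 has no library 2.

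Named genes are those with the largest or most certain changes, those read on 1 day only, and the 5 highest and 5 lowest of each list. Those added for promoter motifs and 1 other are identified in the text. Some genes are not reported here. The comparison, the 49 gene lists and the 10 marker lists were chosen with earlier results of these data known. Gene coordinates are from GENCODE M21 (GRCm38), and promoter sequences are from RefSeq (GRCm38.p6).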

Additional observations from a re-analysis of the deposited data

Results flagged for a closer look

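In 27 of 259 named genes tested, 1 day 3 library stood far from the other 3, by Dixon's test at the 95% level. Chance alone flags about 1 in 20 such groups. Day 1, with 3 libraries, was not tested. Library 2 was the high one for Acta2 (710.0 CPM), Actb (4502), Actn1 (309.9), Alpl (4.88), Ankrd1 (2.36), Cd24a (711), Fosb (71.8), Id3 (243), Srxn1 (26.8) and Ugdh (101). It was the low one for Aars (116), Cd68 (3.31), Inhba (19.8), Klf9 (70.5), Lgr5 (40.5), Malat1 (3354) and Slc7a11 (5.67). For the genes in this set that fell, the high library 2 lay nearer to day 1 than the other day 3 libraries did, which follows from its being the high one. Library 1 was the high one for Col2a1 (20253 CPM), Frzb (745), Irs1 (269), Lect1 (393), Nfia (138), Peg10 (1171), Plod2 (298), Reck (58.7), Thbs1 (5192) and Txnip (376). No library 3 or 4 of day 3 was flagged. These were the closest pair of that day (r = 0.9971), so neither could readily stand apart from the rest.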

How the results depend on the processing

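Of the 225 genes named in the text that passed, 150 passed in the same direction in all 22 alternatives in which they were tested, and no named gene changed sign while called. Averaging libraries 3 and 4 of each day left 1239 genes higher and 1252 lower, and ended 34 of the named calls. Leaving out single libraries gave 1298 to 1681 higher and 1267 to 1852 lower, and 612 to 733 at least 2-fold higher and 302 to 395 at least 2-fold lower. Leaving out all libraries of 1 number gave 830 to 2192 higher and 705 to 2342 lower. The lowest of these counts came without number 3 (830 higher, 724 lower) and number 1 (878 higher, 705 lower), and without number 1 only 6 mitotic genes fell. The 2-fold counts moved with the pseudocount, to 358 higher and 221 lower at 5, and edgeR (1162) and DESeq2 (1152) on recovered reads gave more genes 2-fold higher than the 667 of limma. The cause was not tested.

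With the library number as a block, 2394 genes were higher and 2510 lower, 703 and 405 of all genes being at least 2-fold higher and lower. Among the named genes the block ended 1 call and added 10, each given beside its gene, and changed no other call. Precision is limited by 3 or 4 libraries a day and, for genes near 1 CPM, by low read counts.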
